A study of Mus musculus with 12 samples.

Results

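Adherent neural stem (ANS) cells of the mouse were compared before and 2 days after the first step of their differentiation. The comparison rests on 6 of the 12 RNAseq libraries of the series. ANS cells are neural progenitors grown as a monolayer from the normal embryonic mouse brain, and they serve as a model of GABAergic neuron differentiation. The 3 libraries called T0 came from cells proliferating in growth medium with FGF2 and EGF at 20 ng/ml each and the supplement N2 at 1%. The 3 called T1 came from cells sampled 2 days after the change to medium D1, in which FGF was at 10 ng/ml, EGF at 2 ng/ml, N2 at 0.5% and the supplement B27 at 1%, all in the same Euromed-N base. Neither group carried a genetic alteration, and each library was put in its group by its label. The study's methods also had the cells detached with Accutase and plated again 1 day before medium D1, so the lower EGF and FGF, the B27 supplement, the second plating and the time in culture cannot be told apart as sources of a difference. RNA was read from whole cultures, so fewer cells of a type and less RNA per cell cannot be told apart either.

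The question put to these libraries was how the transcriptome moves when proliferation slows and commitment begins. All 22609 genes of the count table were considered, and they were read by pathway and by gene family, beyond the cell cycle and the neuronal markers. Between 11698240 and 16631614 reads per library lay on genes. Values are CPM, counts scaled to one common total of gene reads per library and not divided by transcript length, and are given for replicates 1, 2 and 3 in this order. A log2 fold change is T1 over T0 with its standard error from 3 against 3 libraries, and a gene is called lower or higher where the p-value of edgeR's quasi-likelihood test, adjusted over all genes tested, was under 0.05. Of the 12364 genes with enough reads to be tested, 2078 were lower at T1 (16.8%) and 1871 were higher (15.1%), with a median log2 fold change of -0.0082 over all of them. At least a 2-fold change was seen in 1083 of the lower and 877 of the higher genes, and the 3 values of each group did not overlap in 2075 and 1870 of them. With 3 against 3 libraries a gene past the threshold is nearly always separate in this way. These counts of separate groups therefore add no support to the calls, and none is given over all genes tested.

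T0 replicate 3 stood apart from the other T0 libraries. The correlation of its log2 CPM with theirs was 0.946 and 0.947, against 0.996 between T0 replicates 1 and 2 and 0.987 to 0.993 among the T1 libraries, and its share of uniquely aligned reads on no gene was 13.3%, against 19.6% and 19.9%. Without it, 24.9% of the genes tested were lower and 25.2% higher, and 2077 of the lower and 1869 of the higher genes were called in both fits. With T0 replicate 1 left out the shares were 14.4% and 11.2%, and with T0 replicate 2 left out 14.0% and 11.0%. Leaving out a T1 library lowered the shares further: 7.84% were lower and 6.68% higher without T1 replicate 1, 7.50% and 6.47% without T1 replicate 2, and 9.69% and 8.47% without T1 replicate 3. Calls that held in all 6 of these fits numbered 883 lower and 723 higher, and 0 of the called genes changed sign in any of them. Where leaving out 1 library moved a count of members by over 1.5 times, the count without it stands in parentheses, and a fold change that moved by over 1.5 times without T0 replicate 3 is given in both forms. Beside a list, the shares of its members called lower and higher are set against the 16.8% and 15.1% of all genes, and counts without T0 replicate 3 are to be read against 24.9% and 25.2%.

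The labelled cell type was checked against its markers. The summed level of 7 neural progenitor markers was 6560 to 7950 CPM at T0 and 6450 to 7870 CPM at T1, and none of them was called, with Sox1 at no more than 3 counts in every library. The sum of 7 neuronal markers went from 878 to 943 CPM at T0 to 2020 to 2550 CPM at T1, with 5 of them higher. The 6 microglia markers were at no more than 3 counts in every library, and those of endothelial cells (0.888 to 2.98 CPM in sum over all 6 libraries), fibroblasts (0.336 to 1.32), Schwann and neural crest cells (0.139 to 0.821) and erythroid cells (0.22 to 0.775) were near 0. The sum of 5 astrocyte markers was 41.6 to 347 CPM at T0, where T0 replicate 3 was the low library, and 142 to 225 CPM at T1, with Gjb6 at 0 throughout. The sum of 6 oligodendrocyte lineage markers went from 6.58 to 45.5 CPM to 99.2 to 201 CPM, and Pdgfra alone among them was called.

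Neural progenitors divide under FGF and EGF, whose receptors signal through RAS and the kinase ERK to immediate early genes, cyclin D1 and MYC. MYC in turn drives the genes that build ribosomes, nucleotides and proteins, so a growing progenitor spends much of its transcription on synthesis. Compartments of degradation such as the lysosome, and matrix and adhesion molecules, were read beside these. The gene lists below follow that order, from the growth factor signal to synthesis, metabolism, degradation, matrix and adhesion.

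**Figure D1:**
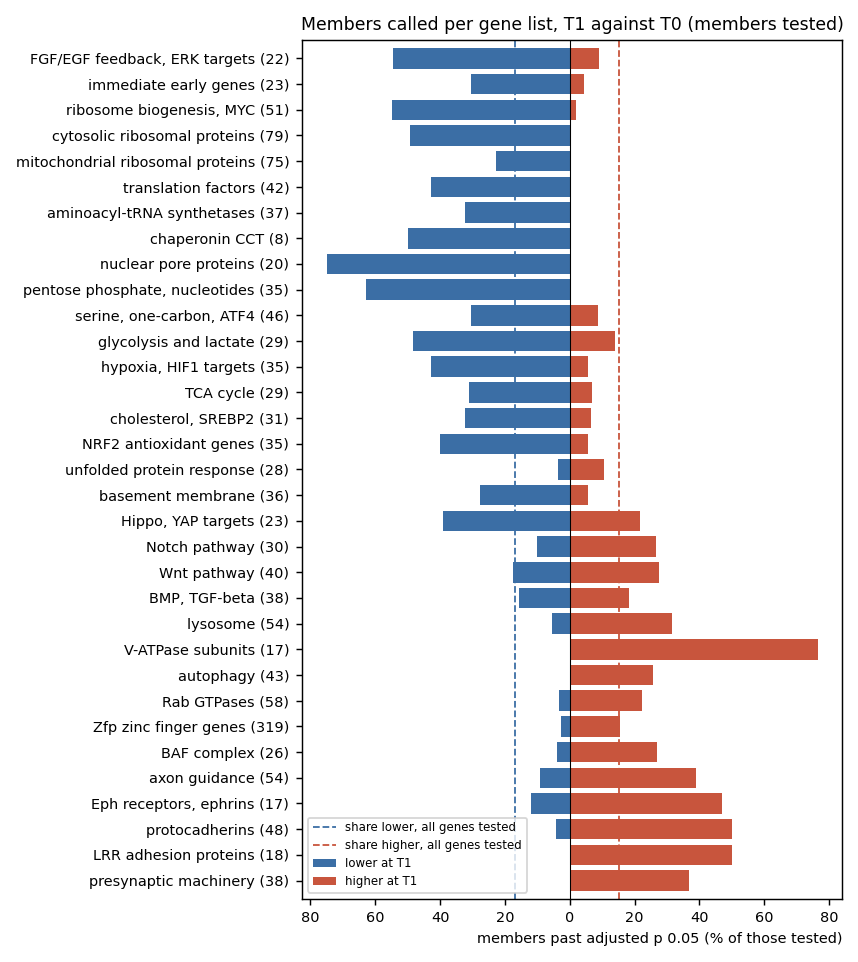
Share of the tested members of 33 gene lists that were lower (blue, to the left) or higher (red, to the right) at T1 than at T0, in percent, with the number of members tested in parentheses and the shares over all genes tested as dashed lines (16.8% lower and 15.1% higher). Synthesis lists lie to the left and V-ATPase, adhesion and guidance families to the right.

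The largest changes of single genes came first. They were taken from called genes whose mean CPM over the 6 libraries had a log2 of at least 3. These genes also had to be called without T0 replicate 3 and to have groups that did not overlap. Within this choice the largest rise was that of Camk2a, the alpha subunit of calcium/calmodulin kinase II. It went from 5.06, 5.88 and 1.73 to 398, 380 and 312 CPM (log2 fold change 6.42 ± 0.43, adjusted p = 0.0004). Pkd2l1, a TRP-type cation channel, was at 0.22, 0.615 and 0.139 at T0 and 15.3, 20.4 and 11.9 CPM at T1 (log2 fold change 5.56 ± 0.48, adjusted p = 0.00055). Cxcr7 (Ackr3), a scavenging receptor for the chemokine CXCL12 that guides migrating interneurons, went from 3.88, 4.99 and 0.208 to 106, 121 and 167 CPM (log2 fold change 5.44 ± 0.74, adjusted p = 0.0026). Separate groups were a condition of the choice, so the separation in these genes adds no support. Next came Dcx, a microtubule protein of migrating neurons, the receptor kinase Ephb1, Psd2, the calcium release channel Ryr3, Gdap1l1, the Notch ligand Dll4, Sorcs2, the urea transporter Slc14a2 and the neuronal connexin Gjd2, with log2 fold changes from 5.29 (Dcx) down to 4.02, and 3.42 without T0 replicate 3 (Gjd2).

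Of the 12 largest falls, 6 were of genes of DNA replication, repair and cell division (Cep55, Bub1b, Kif2c, Melk, Cdt1 and Fancd2), and E130306D19Rik and 5730590G19Rik carry no descriptive name. Car3, a carbonic anhydrase, fell the furthest. It was at 14.1, 12.6 and 176 at T0 and 1.09, 1.46 and 0.894 CPM at T1 (log2 fold change -5.88 ± 1.28 (-3.54 without T0 replicate 3), adjusted p = 0.015, and up to 0.072 without T1 replicate 1, 2 or 3). Here T0 replicate 3 was far above the other T0 libraries. Myo5b, a myosin motor of recycling endosomes, went from 30.7, 29.5 and 28.4 to 1.77, 1.6 and 1.55 CPM (log2 fold change -4.17 ± 0.16, adjusted p = 0.00025). Areg, the EGF receptor ligand amphiregulin, on mm9 at chr5:91568640-91577458, was at 43.4, 38.1 and 60.3 at T0 and 2.78, 2.48 and 2.74 CPM at T1 (log2 fold change -4.14 ± 0.23, adjusted p = 0.00037). Ucp2, a carrier of the mitochondrial inner membrane, went from 21.4, 17.9 and 6.03 to 0.421, 0.729 and 1.37 CPM (log2 fold change -4.1 ± 0.61, adjusted p = 0.0036). The values of Myo5b and Areg were alike within each group, and separate groups were a condition of the choice for all 4 genes.

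On the FPKM scale, which corrects for transcript length, the rises that added most to the transcriptome were in abundant genes. The growth factor gene Ptn (pleiotrophin) went from 1250, 1300 and 1100 FPKM to 2160, 1970 and 2090 FPKM, and Ncald, a calcium sensor, from 128, 126 and 80.6 FPKM to 477, 533 and 516 FPKM. Cpe, a peptide-processing enzyme, went from 163, 154 and 103 FPKM to 490, 518 and 462 FPKM. Sox4, Tuba1a, Bcan, Lrrn1, Gabarap, Pfn2 and Snn complete the 10. In all 3 genes given by library the T1 values lay above the T0 values by more than the whole range within a group. The falls that took most away were led by ribosomal protein genes and by Lgals1 (galectin-1), a sugar-binding protein of neural progenitors, at 1210, 1330 and 1490 FPKM at T0 and 313, 245 and 498 FPKM at T1. Ptn was no longer called without T1 replicate 1, with adjusted p up to 0.058. Sox4 and Gabarap were no longer called without T1 replicate 1, 2 or 3, with adjusted p up to 0.098 and 0.094. Tuba1a was no longer called without T0 replicate 1 or 2 or without T1 replicate 1, 2 or 3, with adjusted p up to 0.088.

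Targets and feedback inhibitors of FGF and EGF signalling were the first group read. Of 22 members tested, 12 were lower (6, 5 and 6 without T1 replicates 1, 2 and 3) and 2 higher (1 without T1 replicate 1), that is 54.5% lower against 16.8% of all genes (median log2 fold change -1.03, and -0.58 without T0 replicate 3). Dusp6, a phosphatase that switches ERK off and is itself induced by ERK, was at 156, 128 and 515 at T0 and 47, 40.2 and 34.8 CPM at T1 (log2 fold change -2.71 ± 0.54 (-1.81 without T0 replicate 3), adjusted p = 0.011, and up to 0.058 without T1 replicate 2 or 3). Spry4, an inhibitor in the same feedback loop, went from 69.3, 62.4 and 292 to 25.9, 24.9 and 17.2 CPM (log2 fold change -2.64 ± 0.63 (-1.55 without T0 replicate 3), adjusted p = 0.02, and up to 0.086 without T1 replicate 1, 2 or 3). Both were highest in T0 replicate 3, yet the other T0 libraries also lay above every T1 library. Ccnd1, cyclin D1, showed the same order of libraries, at 225, 214 and 959 at T0 and 83.6, 81.3 and 65.1 CPM at T1 (log2 fold change -2.6 ± 0.61 (-1.52 without T0 replicate 3), adjusted p = 0.019, and up to 0.082 without T1 replicate 1, 2 or 3).

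Of the ETS factors of this pathway, Etv4 and Etv5 were lower. Etv4 was at 163, 149 and 196 at T0 and 36.4, 32.7 and 58.7 CPM at T1 (log2 fold change -1.99 ± 0.24, adjusted p = 0.0018). Etv5 went from 334, 315 and 635 to 114, 110 and 153 CPM (log2 fold change -1.77 ± 0.3, adjusted p = 0.0063). Their relative Etv1 was higher, at 89.8, 88.4 and 71.5 at T0 and 144, 211 and 122 CPM at T1 (log2 fold change 0.93 ± 0.22, adjusted p = 0.019, and up to 0.053 without T1 replicate 1). Il17rd (Sef), a membrane inhibitor of FGF signalling, was likewise higher, at 79.6, 82.2 and 109 at T0 and 304, 343 and 217 CPM at T1 (log2 fold change 1.68 ± 0.21, adjusted p = 0.0019). The feedback genes Spry2 and Dusp4 were not called. Spry2 was at 94.4, 86 and 138 at T0 and 75.7, 72.4 and 74.8 CPM at T1 (log2 fold change -0.52 ± 0.19, adjusted p = 0.074). Dusp4 was at 6.59, 6.43 and 12 at T0 and 5.97, 4.96 and 4.65 CPM at T1 (log2 fold change -0.69 ± 0.3, adjusted p = 0.12). In both the T1 libraries lay below all T0 libraries, but by little.

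Immediate early genes, which respond to growth factors within minutes, included 7 lower (3 without T0 replicate 1 and 3, 3 and 4 without T1 replicates 1, 2 and 3) and 1 higher (0 and 0 without T0 replicates 1 and 2 and 0, 0 and 0 without T1 replicates 1, 2 and 3) of 23 members tested (30.4% lower and 4.35% higher, against 16.8% and 15.1%, median log2 fold change -0.46, and -0.39 without T0 replicate 3). Junb, a subunit of the factor AP-1, was at 26.3, 18.4 and 27.9 at T0 and 5.3, 6.13 and 9.89 CPM at T1 (log2 fold change -1.76 ± 0.29, adjusted p = 0.0053). Klf10, a growth-inhibitory zinc finger factor, went from 212, 182 and 335 to 81.9, 76.7 and 93.7 CPM (log2 fold change -1.53 ± 0.24, adjusted p = 0.0044). Egr1 varied widely among the T0 libraries, at 302, 126 and 382 at T0 and 101, 86.7 and 124 CPM at T1 (log2 fold change -1.38 ± 0.38, adjusted p = 0.033, and up to 0.13 without T0 replicate 1 or without T1 replicate 1, 2 or 3). The orphan nuclear receptor gene Nr4a3 was the one higher member, at 3.66, 4.51 and 6.93 at T0 and 10.9, 9.34 and 10.7 CPM at T1 (log2 fold change 1.03 ± 0.27, adjusted p = 0.026, and up to 0.095 without T0 replicate 1 or 2 or without T1 replicate 1, 2 or 3).

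Receptors were read with their ligands. Of 25 receptor tyrosine kinases and ligands, 4 were lower (2, 2 and 7 without T0 replicates 1, 2 and 3 and 0, 0 and 2 without T1 replicates 1, 2 and 3) and 6 higher (3 and 3 without T1 replicates 1 and 2) (16% lower and 24% higher, against 16.8% and 15.1%, median log2 fold change 0.29, and 0.15 without T0 replicate 3). Egfr, whose ligand was cut from 20 to 2 ng/ml, was higher, at 1040, 1010 and 826 at T0 and 1690, 1910 and 1690 CPM at T1 (log2 fold change 0.88 ± 0.15, adjusted p = 0.0058). Kit, the receptor of stem cell factor, was at 49, 46.8 and 24.4 at T0 and 180, 247 and 142 CPM at T1 (log2 fold change 2.24 ± 0.32, adjusted p = 0.003). Pdgfra, a receptor that marks oligodendrocyte precursors, went from 29.4, 26.7 and 3.6 to 149, 189 and 87.3 CPM (log2 fold change 2.83 ± 0.7, adjusted p = 0.023, and up to 0.084 without T1 replicate 1 or 2). The neuregulin receptor gene Erbb4 was at 42.7, 43.7 and 6.44 at T0 and 176, 203 and 120 CPM at T1 (log2 fold change 2.43 ± 0.64, adjusted p = 0.028, and up to 0.097 without T1 replicate 1, 2 or 3). T0 replicate 3 was the lowest library for these 4 receptor genes, and the T1 libraries lay above every T0 library. The FGF receptor genes fell or were not called. Fgfr1 went from 475, 441 and 368 to 263, 252 and 273 CPM (log2 fold change -0.71 ± 0.13, adjusted p = 0.0088, and up to 0.052 without T1 replicate 1 or 2). Fgfr3, a receptor of glial progenitors, was at 766, 674 and 227 at T0 and 217, 177 and 253 CPM at T1 (log2 fold change -1.36 ± 0.42, adjusted p = 0.047, and up to 0.16 without T0 replicate 1 or 2 or without T1 replicate 1, 2 or 3). Here T0 replicate 3 lay within the T1 values. Fgfr2 was at 44.9, 48.1 and 27.3 at T0 and 46.7, 51.7 and 60.7 CPM at T1 (log2 fold change 0.4 ± 0.23, adjusted p = 0.21).

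**Figure D2:**
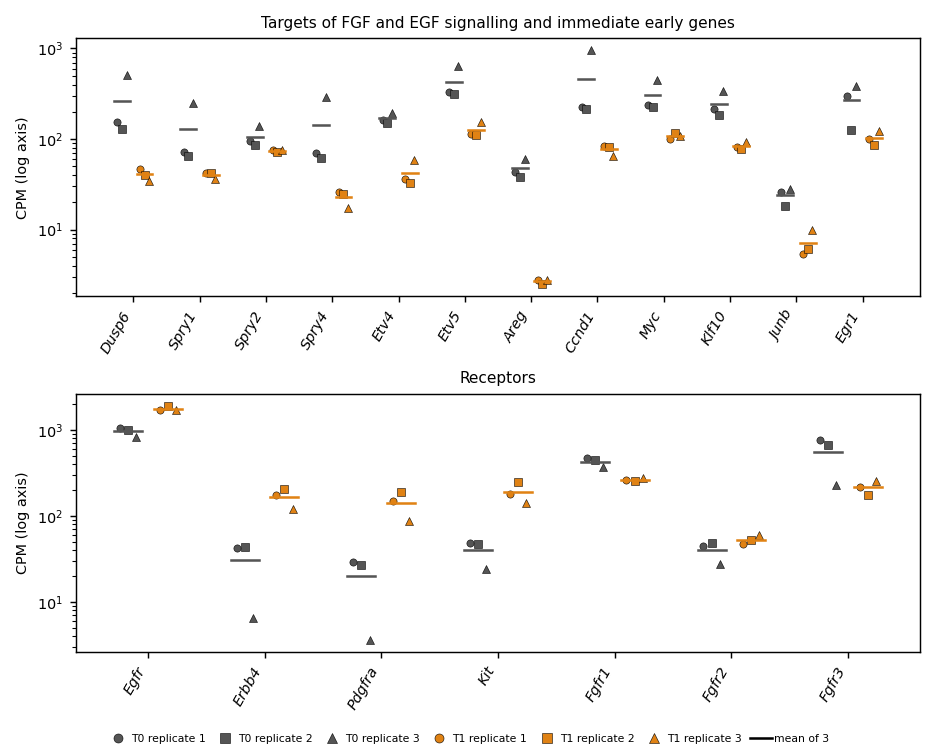
CPM on a log axis of 12 targets of growth factor signalling (upper panel) and 7 receptors (lower panel) in each of 3 T0 (grey) and 3 T1 (orange) libraries, with circles, squares and triangles for replicates 1, 2 and 3 and bars for the group mean. T0 replicate 3 is the highest library for Dusp6 (515 CPM) and Ccnd1 (959 CPM) and the lowest for Erbb4 (6.44 CPM) and Pdgfra (3.6 CPM).

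Ribosome building starts in the nucleolus under the control of MYC. Of 51 ribosome biogenesis genes and MYC targets, 28 were lower (8, 7 and 11 without T1 replicates 1, 2 and 3) and 1 was higher (3 without T0 replicate 3), 54.9% lower against 16.8% of all genes (median log2 fold change -0.83, and -0.47 without T0 replicate 3). Myc itself went from 237, 228 and 444 to 100, 116 and 107 CPM (log2 fold change -1.49 ± 0.27, adjusted p = 0.0078). Its relative Mycl1 was the higher member, at 15.9, 18.3 and 7.9 at T0 and 54.9, 61.9 and 47.4 CPM at T1 (log2 fold change 1.96 ± 0.3, adjusted p = 0.0044). Dkc1, dyskerin, which modifies ribosomal RNA, was at 91.7, 96.1 and 218 at T0 and 37.9, 39.7 and 41.4 CPM at T1 (log2 fold change -1.77 ± 0.34, adjusted p = 0.0098, and up to 0.052 without T1 replicate 2). Srm, spermidine synthase, went from 68.4, 65 and 234 to 41.5, 39.3 and 40.9 CPM (log2 fold change -1.59 ± 0.5 (-0.72 without T0 replicate 3), adjusted p = 0.048, and up to 0.15 without T1 replicate 1, 2 or 3). Ddx21, a nucleolar helicase, was at 254, 264 and 580 at T0 and 174, 191 and 174 CPM at T1 (log2 fold change -1.03 ± 0.32, adjusted p = 0.049, and up to 0.14 without T1 replicate 1, 2 or 3). For all of the lower genes named here T0 replicate 3 was the highest of the 6 libraries, and the other T0 libraries still lay above the T1 libraries. The E-box CACGTG, which MYC binds, was searched on both strands in the 250 bases before each RefSeq gene start (GRCm38.p6). It lay in 2 of the 53 promoters (3.77%) of the 45 members matched by symbol, against 6.02% of all promoters. In summed FPKM the list stood at 75.3%, 76.8% and 148% of its T0 mean in T0 replicates 1, 2 and 3 and at 51.0%, 50.3% and 55.3% at T1.

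Cytosolic ribosomal proteins were lower in 39 of 79 genes tested (24 without T0 replicate 2 and 6 and 5 without T1 replicates 1 and 2), 49.4% against 16.8% of all genes, with 0 higher (median log2 fold change -0.73, and -0.58 without T0 replicate 3). These genes have many pseudogenes, and reads that align to several places were not counted, so their levels are uncertain. Such alignments were 34% to 39% of all entries at T0 and 27.5% to 33.3% at T1, so their changes are uncertain too. Rpl13a went from 370, 374 and 447 to 184, 160 and 211 CPM (log2 fold change -1.1 ± 0.15, adjusted p = 0.0025). Rpl8 was at 1910, 1850 and 2490 at T0 and 1130, 1020 and 1380 CPM at T1 (log2 fold change -0.82 ± 0.18, adjusted p = 0.016, and up to 0.076 without T1 replicate 1 or 2). Rps28 went from 3.59, 3.01 and 3.81 to 1.35, 0.875 and 1.25 CPM (log2 fold change -1.58 ± 0.28, adjusted p = 0.0071). For these 3 genes the T1 libraries lay below every T0 library, and T0 replicate 3 was the highest library. Mitochondrial ribosomal proteins were lower in 17 of 75 genes (1, 1 and 2 without T1 replicates 1, 2 and 3) and higher in 0 (2 without T0 replicate 3) (22.7% lower and 0% higher, against 16.8% and 15.1%, median log2 fold change -0.42, and -0.24 without T0 replicate 3). Mrps27 was at 36.5, 37.5 and 63.7 at T0 and 22.4, 19.8 and 22.1 CPM at T1 (log2 fold change -1.1 ± 0.24, adjusted p = 0.015, and up to 0.07 without T1 replicate 1, 2 or 3).

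Translation also needs factors outside the ribosome. Among initiation and elongation factors 18 of 42 were lower (0, 0 and 9 without T1 replicates 1, 2 and 3) and 0 higher (3 without T0 replicate 3) (42.9% lower and 0% higher, against 16.8% and 15.1%, median log2 fold change -0.51, and -0.36 without T0 replicate 3). Eif5a, the factor that carries hypusine, went from 742, 713 and 1620 to 409, 389 and 438 CPM (log2 fold change -1.31 ± 0.32, adjusted p = 0.023, and up to 0.095 without T1 replicate 1, 2 or 3). The poly(A) binding protein gene Pabpc1 was at 965, 1050 and 1280 at T0 and 521, 585 and 714 CPM at T1 (log2 fold change -0.86 ± 0.18, adjusted p = 0.012, and up to 0.062 without T1 replicate 1 or 2). Of 37 aminoacyl-tRNA synthetases, which load amino acids on tRNA, 12 were lower (19 without T0 replicate 3 and 6, 6 and 6 without T1 replicates 1, 2 and 3) and 0 higher (1 without T0 replicate 3) (32.4% lower and 0% higher, against 16.8% and 15.1%, median log2 fold change -0.48, and -0.29 without T0 replicate 3). Kars, the lysine enzyme, went from 274, 273 and 390 to 145, 140 and 159 CPM (log2 fold change -1.08 ± 0.17, adjusted p = 0.0045).

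Nuclear pore proteins were lower in 15 of 20 genes (9, 8 and 9 without T1 replicates 1, 2 and 3), 75% against 16.8% of all genes, with 0 higher (median log2 fold change -0.94, and -0.8 without T0 replicate 3). Nup107, a scaffold subunit of the pore, was at 66.6, 69.8 and 137 at T0 and 31.5, 30.4 and 28.5 CPM at T1 (log2 fold change -1.6 ± 0.29, adjusted p = 0.0078). The chaperonin CCT, which folds actin and tubulin, had 4 of 8 tested subunits lower (7 and 8 without T0 replicates 1 and 3 and 2 and 2 without T1 replicates 1 and 2) and 0 higher (50% lower and 0% higher, against 16.8% and 15.1%, median log2 fold change -0.67, and -0.42 without T0 replicate 3). Tcp1, its first subunit, went from 468, 496 and 688 to 273, 269 and 285 CPM (log2 fold change -1.0 ± 0.17, adjusted p = 0.0062). Of 29 heat shock genes and cytosolic chaperones 10 were lower (17 without T0 replicate 3 and 5 and 5 without T1 replicates 1 and 2) and 1 higher (0, 0 and 2 without T0 replicates 1, 2 and 3 and 0, 0 and 0 without T1 replicates 1, 2 and 3) (34.5% lower and 3.45% higher, against 16.8% and 15.1%, median log2 fold change -0.64, and -0.33 without T0 replicate 3). Hspd1, the mitochondrial chaperonin, was at 195, 202 and 388 at T0 and 96.2, 98.7 and 95.6 CPM at T1 (log2 fold change -1.43 ± 0.27, adjusted p = 0.0094). The abundant Hsp90ab1 went from 3970, 4160 and 4460 to 2230, 2400 and 2590 CPM (log2 fold change -0.8 ± 0.14, adjusted p = 0.0064). Genes for the mTOR pathway itself, which couples growth factors to translation, had 2 lower (1, 1 and 4 without T0 replicates 1, 2 and 3 and 1 and 1 without T1 replicates 1 and 3) and 6 higher (10 without T0 replicate 3 and 1, 2 and 3 without T1 replicates 1, 2 and 3) of 36, shares of 5.56% and 16.7% against 16.8% and 15.1% of all genes. Pik3r1, a regulatory subunit of PI3 kinase, was at 405, 439 and 427 at T0 and 751, 924 and 594 CPM at T1 (log2 fold change 0.84 ± 0.18, adjusted p = 0.013, and up to 0.054 without T1 replicate 1).

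**Figure D3:**
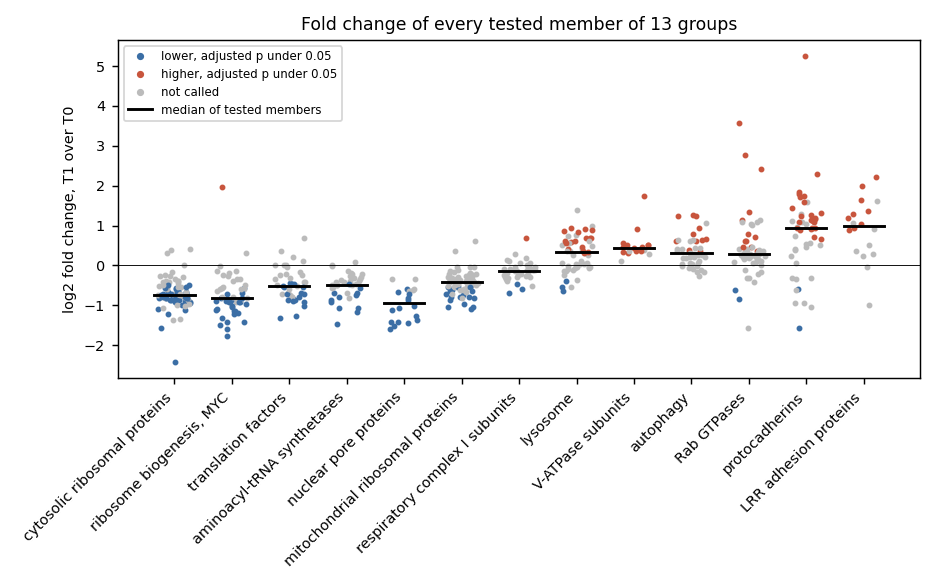
Log2 fold change, T1 over T0, of every tested member of 13 groups, with lower members in blue, higher members in red, members not called in grey and the median of the tested members as a black bar. The medians are -0.73 for cytosolic ribosomal proteins, -0.94 for nuclear pore proteins, 0.44 for V-ATPase subunits and 0.94 for protocadherins.

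Genes of nucleotide supply were lower at many steps. In the pentose phosphate and nucleotide list 22 of 35 genes were lower and 0 higher (1 without T0 replicate 3) (62.9% lower and 0% higher, against 16.8% and 15.1%, median log2 fold change -0.8, and -0.55 without T0 replicate 3), led by Tk1, Rrm2 and Tyms, whose enzymes make thymidine and deoxynucleotides in S phase (-3.9 for Tk1, -3.67 for Rrm2 and -2.52 for Tyms on the log2 scale). For comparison, 39 of 43 DNA replication genes and 34 of 37 Fanconi and recombination genes were lower (90.7% and 91.9%, against 16.8% of all genes). One-carbon metabolism, which feeds the same synthesis, had lower genes as well. Mthfd2, a mitochondrial folate enzyme, went from 23.4, 24.6 and 97.9 to 6.14, 5.84 and 5.48 CPM (log2 fold change -3.06 ± 0.6 (-2.05 without T0 replicate 3), adjusted p = 0.01, and up to 0.056 without T1 replicate 2 or 3). Shmt1, which turns serine into glycine, was at 79.8, 75.4 and 191 at T0 and 16.9, 12.3 and 17.5 CPM at T1 (log2 fold change -2.89 ± 0.4, adjusted p = 0.0028).

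The same list holds serine enzymes and targets of the stress factor ATF4. Over the whole list 14 of 46 genes were lower (6, 5 and 7 without T1 replicates 1, 2 and 3) and 4 higher (11 without T0 replicate 3 and 1 and 1 without T1 replicates 1 and 2) (30.4% lower and 8.7% higher, against 16.8% and 15.1%, median log2 fold change -0.34, and -0.19 without T0 replicate 3). The serine enzymes Phgdh and Psat1 and the asparagine enzyme Asns, all ATF4 targets, were not called, at log2 fold changes of -0.17, -0.15 and -0.19. Other ATF4 targets were higher. Ddit3 (CHOP) went from 9.89, 11.3 and 6.24 to 21.1, 21.4 and 20.7 CPM (log2 fold change 1.2 ± 0.23, adjusted p = 0.0096). Slc7a11, the cystine transporter, was at 11.3, 11.9 and 17.5 at T0 and 56.1, 63.2 and 22.8 CPM at T1 (log2 fold change 1.8 ± 0.39, adjusted p = 0.015, and up to 0.063 without T1 replicate 1 or 2). T1 replicate 3 held less of it than the other T1 libraries. The arginine transporter gene Slc7a1 was lower, at 64.9, 63.3 and 208 at T0 and 25.4, 37.4 and 35.4 CPM at T1 (log2 fold change -1.77 ± 0.49 (-0.96 without T0 replicate 3), adjusted p = 0.032, and up to 0.12 without T1 replicate 1, 2 or 3).

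Glycolysis splits glucose to pyruvate and lactate. Of 29 members 14 were lower and 4 higher (7 without T0 replicate 3 and 1 and 1 without T1 replicates 1 and 2) (48.3% lower and 13.8% higher, against 16.8% and 15.1%, median log2 fold change -0.83, and -0.76 without T0 replicate 3). Ldha, the lactate dehydrogenase subunit of proliferating and hypoxic cells, on mm9 at chr7:54096844-54110997, went from 652, 687 and 1030 to 166, 169 and 326 CPM (log2 fold change -1.84 ± 0.32, adjusted p = 0.007). Ldhb, the subunit that prevails in oxidative tissue, was at 89.6, 93.2 and 57.6 at T0 and 206, 207 and 237 CPM at T1 (log2 fold change 1.43 ± 0.2, adjusted p = 0.0027). The pair thus moved in opposite directions. Aldoa, aldolase, went from 649, 577 and 605 to 183, 184 and 271 CPM (log2 fold change -1.52 ± 0.18, adjusted p = 0.0017). Tpi1, triosephosphate isomerase, was at 579, 603 and 591 at T0 and 162, 157 and 299 CPM at T1 (log2 fold change -1.52 ± 0.26, adjusted p = 0.0065). The glucose transporter gene Slc2a1 went from 77.1, 67.1 and 69 to 21.6, 22.1 and 41.4 CPM (log2 fold change -1.32 ± 0.26, adjusted p = 0.011, and up to 0.054 without T1 replicate 2). T1 replicate 3 was the highest T1 library for each of the lower genes. Hexokinase 2 (Hk2), at 83.5, 81.5 and 115 at T0 and 18.7, 23.8 and 64.9 CPM at T1 (log2 fold change -1.38 ± 0.46, adjusted p = 0.058), was not called.

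Genes induced by hypoxia through HIF1 were summed highest at T1 in the same library. Of 35 members 15 were lower (25 without T0 replicate 3 and 7 and 7 without T1 replicates 1 and 2) and 2 higher (0 and 0 without T0 replicates 1 and 2 and 0, 0 and 1 without T1 replicates 1, 2 and 3) (42.9% lower and 5.71% higher, against 16.8% and 15.1%, median log2 fold change -0.93, and -0.98 without T0 replicate 3), and glycolysis genes are among both lists. Stc1, a secreted glycoprotein, was at 5.06, 3.83 and 9.91 at T0 and 0.589, 0.802 and 0.834 CPM at T1 (log2 fold change -3.05 ± 0.45, adjusted p = 0.0034). Ndrg1 went from 15.6, 22.2 and 3.88 to 0.0841, 0.438 and 1.91 CPM (log2 fold change -3.99 ± 0.93, adjusted p = 0.019, and up to 0.088 without T1 replicate 1 or 2). Vegfa, the vascular growth factor, was at 262, 250 and 48.9 at T0 and 14, 17.9 and 84.4 CPM at T1 (log2 fold change -2.26 ± 0.86, adjusted p = 0.084). It was not called, with T0 replicate 3 below T1 replicate 3. Hif1a, the factor's own subunit, was among the higher members, at 258, 297 and 268 at T0 and 339, 392 and 379 CPM at T1 (log2 fold change 0.43 ± 0.12, adjusted p = 0.033, and up to 0.12 without T0 replicate 1 or 2 or without T1 replicate 1, 2 or 3). In summed FPKM the list stood at 100.5%, 96.3% and 103.2% of its T0 mean in the T0 libraries and at 42.0%, 42.2% and 63.1% in T1 replicates 1, 2 and 3.

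**Figure D4:**
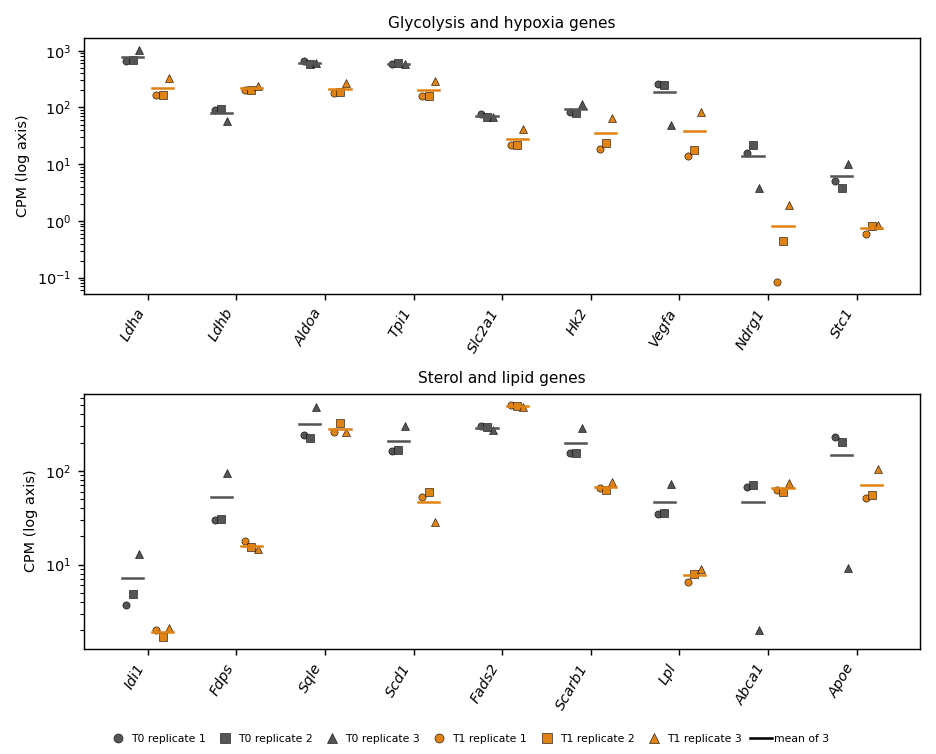
CPM on a log axis of 9 glycolysis and hypoxia genes (upper panel) and 9 sterol and lipid genes (lower panel) in each of 3 T0 (grey) and 3 T1 (orange) libraries, with circles, squares and triangles for replicates 1, 2 and 3 and bars for the group mean. T1 replicate 3 is the highest T1 library for Ldha (326 CPM) and Vegfa (84.4 CPM), and T0 replicate 3 is the highest T0 library for Fdps (96 CPM) and the lowest for Apoe (9.28 CPM).

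Mitochondrial genes came next. Of 29 TCA cycle and anaplerotic genes 9 were lower (16 without T0 replicate 3 and 2, 2 and 4 without T1 replicates 1, 2 and 3) and 2 higher (1 without T0 replicate 2 and 1 and 1 without T1 replicates 1 and 2) (31% lower and 6.9% higher, against 16.8% and 15.1%, median log2 fold change -0.35, and -0.26 without T0 replicate 3). Pck2, the mitochondrial PEP carboxykinase, was at 87.2, 87.6 and 85.8 at T0 and 39, 30 and 30.7 CPM at T1 (log2 fold change -1.39 ± 0.14, adjusted p = 0.00084). The mitochondrial malic enzymes parted. Me2 went from 31.1, 35.8 and 67 to 16.3, 16.8 and 18.1 CPM (log2 fold change -1.39 ± 0.29, adjusted p = 0.014, and up to 0.064 without T1 replicate 1, 2 or 3). Me3 was at 0.659, 1.16 and 0.485 at T0 and 5.05, 4.01 and 6.67 CPM at T1 (log2 fold change 2.76 ± 0.39, adjusted p = 0.0029). The respiratory chain had few called members: 3 lower (1 and 1 without T1 replicates 1 and 2) and 1 higher (2 without T0 replicate 3) of 36 complex I subunits, 1 lower (2 without T0 replicate 3 and 0, 0 and 0 without T1 replicates 1, 2 and 3) and 0 higher of 22 subunits of complexes III and IV, and 1 lower (2 and 3 without T0 replicates 1 and 3 and 0 and 0 without T1 replicates 1 and 2) and 1 higher (0 without T0 replicate 2 and 0, 0 and 0 without T1 replicates 1, 2 and 3) of 17 ATP synthase subunits, each below the 16.8% and 15.1% of all genes. In the libraries numbered 1 and 2 alone, 11, 11 and 8 of these subunits were lower and 3, 0 and 1 higher. In that fit 3729 of the 12468 genes tested were lower and 3733 higher. The low counts of lower members therefore do not hold there, while higher members stayed few. Fatty acid oxidation had 4 lower (15 without T0 replicate 3 and 2 and 2 without T1 replicates 1 and 2) and 0 higher (5 without T0 replicate 3) of 31 genes (12.9% lower and 0% higher, against 16.8% and 15.1%, median log2 fold change -0.12, and -0.25 without T0 replicate 3). Etfa, an electron carrier of this pathway, went from 84.8, 83.4 and 94 to 49.7, 47 and 58.6 CPM (log2 fold change -0.75 ± 0.13, adjusted p = 0.0061).

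Sterol genes followed. Of 31 cholesterol synthesis and SREBP2 target genes 10 were lower (17 without T0 replicate 3 and 3, 3 and 3 without T1 replicates 1, 2 and 3) and 2 higher (1 without T0 replicate 2 and 0, 0 and 0 without T1 replicates 1, 2 and 3) (32.3% lower and 6.45% higher, against 16.8% and 15.1%, median log2 fold change -0.72, and -0.34 without T0 replicate 3). Fdps, which makes farnesyl diphosphate, was at 30, 30.5 and 96 at T0 and 17.7, 15.3 and 14.8 CPM at T1 (log2 fold change -1.71 ± 0.47 (-0.93 without T0 replicate 3), adjusted p = 0.032, and up to 0.12 without T1 replicate 1, 2 or 3). Sqle, squalene epoxidase, was at 243, 224 and 484 at T0 and 260, 323 and 260 CPM at T1 (log2 fold change -0.18 ± 0.3, adjusted p = 0.67). Sqle was not called. T0 replicate 3 was the highest of the 6 libraries for both genes, and for Sqle the other T0 libraries lay below the T1 libraries. Hmgcs1 had 0 counts in all 6 libraries and cannot be read from these files.

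Fatty acid genes had 5 lower (1, 1 and 2 without T1 replicates 1, 2 and 3) and 5 higher (3 without T0 replicate 2 and 2, 2 and 2 without T1 replicates 1, 2 and 3) of 26 (19.2% lower and 19.2% higher, against 16.8% and 15.1%, median log2 fold change -0.18, and -0.09 without T0 replicate 3). The desaturase Scd1 went from 162, 166 and 303 to 52.9, 58.8 and 28.3 CPM (log2 fold change -2.18 ± 0.36, adjusted p = 0.0054). The brain form Scd2 was at 3120, 3020 and 3240 at T0 and 2720, 2900 and 2650 CPM at T1 (log2 fold change -0.18 ± 0.13, adjusted p = 0.3). The polyunsaturated desaturase Fads2 was at 304, 297 and 270 at T0 and 502, 488 and 477 CPM at T1 (log2 fold change 0.75 ± 0.11, adjusted p = 0.0034). Fasn, fatty acid synthase, and its regulator Srebf1 were not called (-0.01 and -0.18 on the log2 scale). Of 17 sterol efflux and LXR targets 3 were lower (6 without T0 replicate 3) and 4 higher (2 without T0 replicate 2 and 2, 2 and 2 without T1 replicates 1, 2 and 3) (17.6% lower and 23.5% higher, against 16.8% and 15.1%, median log2 fold change 0.09, and 0.07 without T0 replicate 3). Lpl, lipoprotein lipase, went from 34.4, 35.2 and 71.6 to 6.48, 7.95 and 8.88 CPM (log2 fold change -2.59 ± 0.33, adjusted p = 0.0021). Scarb1, the HDL receptor, was at 155, 156 and 285 at T0 and 65.4, 62 and 75.7 CPM at T1 (log2 fold change -1.55 ± 0.26, adjusted p = 0.0058). Apoe, the apolipoprotein of glia, was at 230, 202 and 9.28 at T0 and 51.7, 54.9 and 105 CPM at T1 (log2 fold change -1.06 ± 0.93, adjusted p = 0.4). Abca1, the cholesterol exporter, was at 66.6, 71 and 2.01 at T0 and 62.1, 59.7 and 75.1 CPM at T1 (log2 fold change 0.5 ± 0.92, adjusted p = 0.7). Apoe and Abca1 were not called, and T0 replicate 3 held far less of both than every other library.

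Antioxidant genes controlled by the factor NRF2 were lower in 14 of 35 members (3, 4 and 6 without T1 replicates 1, 2 and 3) and higher in 2 (4 without T0 replicate 3 and 1 and 1 without T1 replicates 1 and 2) (40% lower and 5.71% higher, against 16.8% and 15.1%, median log2 fold change -0.51, and -0.36 without T0 replicate 3). Gsr, glutathione reductase, went from 79.7, 89.7 and 154 to 35.6, 41.2 and 45.5 CPM (log2 fold change -1.4 ± 0.26, adjusted p = 0.0088). Prdx1, a peroxiredoxin, was at 257, 273 and 531 at T0 and 171, 148 and 171 CPM at T1 (log2 fold change -1.11 ± 0.29, adjusted p = 0.026, and up to 0.11 without T1 replicate 1, 2 or 3). Nqo1, a standard readout of NRF2, went from 19.3, 18 and 20.9 to 13, 11.2 and 12.6 CPM (log2 fold change -0.66 ± 0.15, adjusted p = 0.016, and up to 0.074 without T1 replicate 1, 2 or 3). Hmox1, heme oxygenase, was at 38, 35.7 and 72.1 at T0 and 45.5, 44.3 and 56.4 CPM at T1 (log2 fold change 0.01 ± 0.28, adjusted p = 0.99). Catalase (Cat), which is on the list and removes hydrogen peroxide in peroxisomes, was higher, at 138, 138 and 98.8 at T0 and 271, 304 and 261 CPM at T1 (log2 fold change 1.16 ± 0.16, adjusted p = 0.0029). NRF2 binds the antioxidant response element, searched here as TGACNNNGC on both strands in the 250 bases before each RefSeq gene start (GRCm38.p6). Of the 35 members 30 matched a promoter by symbol, with 42 promoters in all. The letters were found in 8 of these 42 (19%), against 10.2% of all 32851 promoters, in 4 of the 13 promoters of lower members and in 4 of the 27 of members not called.

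The 4 matches in promoters of lower members are shown as the letters behind these counts, each with 10 bases on either side and the match in capitals.
Prdx1 (chr4:116685456-116685484, plus strand): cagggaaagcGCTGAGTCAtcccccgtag
G6pdx (chrX:74428919-74428947, minus strand): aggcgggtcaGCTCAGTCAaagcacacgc
Sod1 (chr16:90220696-90220724, plus strand): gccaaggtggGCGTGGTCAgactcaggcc
Nfe2l2 (chr2:75704885-75704913, minus strand): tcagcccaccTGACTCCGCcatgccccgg
The matches begin 133, 57, 56 and 240 bases before the gene starts. G6pdx, the first enzyme of the pentose phosphate pathway, was at 134, 133 and 184 at T0 and 91.7, 89.8 and 98.2 CPM at T1 (log2 fold change -0.69 ± 0.15, adjusted p = 0.016, and up to 0.073 without T1 replicate 1, 2 or 3). Sod1, cytosolic superoxide dismutase, went from 166, 168 and 211 to 112, 99.6 and 135 CPM (log2 fold change -0.65 ± 0.16, adjusted p = 0.022, and up to 0.092 without T1 replicate 1 or 2). Nfe2l2, which encodes NRF2, was at 114, 98.4 and 95.1 at T0 and 77.6, 76.7 and 82.3 CPM at T1 (log2 fold change -0.38 ± 0.11, adjusted p = 0.043, and up to 0.16 without T0 replicate 1 or 2 or without T1 replicate 1, 2 or 3). G6pdx, Sod1 and Nfe2l2 are named for the match and not for the size of their change, and a match is not evidence of binding.

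Metal handling genes had 3 lower (6 without T0 replicate 3 and 1 and 1 without T1 replicates 2 and 3) and 4 higher (2, 2 and 8 without T0 replicates 1, 2 and 3 and 2, 2 and 2 without T1 replicates 1, 2 and 3) of 24 (12.5% lower and 16.7% higher, against 16.8% and 15.1%, median log2 fold change 0.08, and 0.08 without T0 replicate 3). Mt3, the brain metallothionein, went from 3.59, 3.9 and 3.81 to 21, 12.4 and 20.3 CPM (log2 fold change 2.25 ± 0.25, adjusted p = 0.0012). Ccs, the copper chaperone of superoxide dismutase, was at 30.2, 31.3 and 26.2 at T0 and 51.9, 54.3 and 55.2 CPM at T1 (log2 fold change 0.88 ± 0.12, adjusted p = 0.0027). Mt1 was at 85.5, 76 and 46.6 at T0 and 107, 87.8 and 158 CPM at T1 (log2 fold change 0.76 ± 0.29, adjusted p = 0.084) and was not called. Mt2 had 0 counts in all 6 libraries. Tfrc, the transferrin receptor that imports iron, went from 226, 231 and 541 to 102, 118 and 154 CPM (log2 fold change -1.42 ± 0.37, adjusted p = 0.027, and up to 0.11 without T1 replicate 1, 2 or 3). Steap3, the ferrireductase that works with it, was at 4.62, 5.2 and 8.38 at T0 and 1.18, 0.948 and 1.13 CPM at T1 (log2 fold change -2.47 ± 0.32, adjusted p = 0.0022). Tfrc is also a HIF1 target, and the letters TACGTG of the hypoxia response element, found in 2.72% of all promoters, lie 229 bases before its start (chr16:32608883-32608908, plus strand). Under 80% of the HIF1 targets matched a promoter, and among those the letters lay in 2 of 19 promoters of lower members and in 3 of 21 of members not called. The match is shown in capitals.
Tfrc: tcggtaggtgTACGTGcggaaggaag

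Genes of stress in the endoplasmic reticulum had 1 lower (3 without T0 replicate 3 and 0, 0 and 0 without T1 replicates 1, 2 and 3) and 3 higher (10 without T0 replicate 3) of 28 (3.57% lower and 10.7% higher, against 16.8% and 15.1%, median log2 fold change -0.08, and 0.14 without T0 replicate 3). Hspa5 (BiP), the main ER chaperone, was at 421, 426 and 844 at T0 and 570, 518 and 320 CPM at T1 (log2 fold change -0.26 ± 0.34, adjusted p = 0.57). Ern1 (IRE1), a stress sensor, went from 22.6, 21.1 and 16.6 to 43.5, 46.1 and 33.3 CPM (log2 fold change 1.02 ± 0.19, adjusted p = 0.0078). Of 30 p53 targets 6 were lower (12 without T0 replicate 3 and 3 without T1 replicate 1) and 4 higher (2 without T0 replicate 1 and 0, 0 and 1 without T1 replicates 1, 2 and 3) (20% lower and 13.3% higher, against 16.8% and 15.1%, median log2 fold change -0.24, and -0.17 without T0 replicate 3), and the 3 largest falls among them, Gtse1, Ckap2 and Ccnd2, are cell cycle genes. Cdkn1a (p21), the classical p53 target, was at 35, 34.4 and 59.3 at T0 and 18.8, 28.7 and 21.9 CPM at T1 (log2 fold change -0.89 ± 0.27, adjusted p = 0.042, and up to 0.14 without T1 replicate 1, 2 or 3). The BCL2 family and caspases had 4 lower (8 without T0 replicate 3 and 1, 1 and 2 without T1 replicates 1, 2 and 3) and 2 higher (7 without T0 replicate 3 and 1, 1 and 1 without T1 replicates 1, 2 and 3) of 26 (15.4% lower and 7.69% higher, against 16.8% and 15.1%). The BH3-only gene Hrk went from 2.42, 2.73 and 3.26 to 9.34, 9.7 and 11.2 CPM (log2 fold change 1.84 ± 0.21, adjusted p = 0.0014). The related Bbc3 (Puma) was at 13, 13.1 and 6.03 at T0 and 19.9, 22.2 and 22.9 CPM at T1 (log2 fold change 1.02 ± 0.3, adjusted p = 0.038, and up to 0.12 without T1 replicate 1, 2 or 3).

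B27, absent from the growth medium as described, supplies hormones and lipids in standard formulations. Targets of 3 hormone pathways were read for that reason. Retinoid genes had 0 lower (1 and 2 without T0 replicates 1 and 3) and 3 higher of 14 (0% lower and 21.4% higher, against 16.8% and 15.1%, median log2 fold change 0.17, and 0.02 without T0 replicate 3). Thyroid hormone genes had 2 lower (1, 1 and 1 without T1 replicates 1, 2 and 3) and 3 higher (5 without T0 replicate 3) of 13 (15.4% lower and 23.1% higher, against 16.8% and 15.1%), and corticosteroid targets 5 lower (2, 2 and 3 without T1 replicates 1, 2 and 3) and 3 higher (1 and 1 without T0 replicates 1 and 2 and 0 and 1 without T1 replicates 1 and 2) of 16 (31.2% lower and 18.8% higher, against 16.8% and 15.1%). Meis2, a homeobox gene of striatal progenitors that retinoic acid induces, went from 67.9, 68.6 and 45.2 to 151, 146 and 127 CPM (log2 fold change 1.22 ± 0.18, adjusted p = 0.0038). Rarb, the receptor gene that responds most directly to retinoic acid, was at 0.147, 0.615 and 0.0693 CPM at T0 and 0.673, 0.948 and 0.834 CPM at T1, too low to be tested. The thyroid hormone target Klf9 was at 9.23, 11.5 and 7.48 at T0 and 7.32, 7.81 and 9.47 CPM at T1 (log2 fold change -0.19 ± 0.22, adjusted p = 0.53). Nrgn (neurogranin), another target, was at 9.52, 7.59 and 15.2 at T0 and 1.18, 0.802 and 1.13 CPM at T1 (log2 fold change -3.36 ± 0.35, adjusted p = 0.001). Among corticosteroid targets Sgk1 went from 38, 31.6 and 51.3 to 74.5, 89.5 and 56.5 CPM (log2 fold change 0.87 ± 0.23, adjusted p = 0.031, and up to 0.11 without T0 replicate 1 or 2 or without T1 replicate 1 or 2). Tsc22d3 (GILZ) was at 26.7, 28.3 and 21.8 at T0 and 41.8, 40.6 and 41.4 CPM at T1 (log2 fold change 0.69 ± 0.14, adjusted p = 0.011, and up to 0.055 without T1 replicate 1). Fkbp5 went from 50.1, 59.9 and 112 to 29.1, 30.1 and 36.6 CPM (log2 fold change -1.21 ± 0.31, adjusted p = 0.024, and up to 0.098 without T1 replicate 1, 2 or 3). Glul, glutamine synthetase, was at 517, 476 and 419 at T0 and 264, 243 and 211 CPM at T1 (log2 fold change -0.98 ± 0.14, adjusted p = 0.0032). The thyroid hormone and corticosteroid lists had called members on both sides.

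Compartments of degradation came next. Of 17 tested subunits of the V-ATPase, the proton pump that acidifies lysosomes and synaptic vesicles, 13 were higher (4 and 4 without T0 replicates 1 and 2 and 2, 4 and 4 without T1 replicates 1, 2 and 3) and 0 lower, 76.5% against 15.1% of all genes (median log2 fold change 0.44, and 0.41 without T0 replicate 3). Apart from Atp6v1g2, no called rise in this complex reached 1 on the log2 scale. Atp6v0d1, of the membrane sector, went from 122, 111 and 97.2 to 205, 191 and 224 CPM (log2 fold change 0.91 ± 0.13, adjusted p = 0.003). Atp6ap2, an accessory subunit, was at 68.4, 67.9 and 65.9 at T0 and 94, 101 and 104 CPM at T1 (log2 fold change 0.56 ± 0.1, adjusted p = 0.0075). Atp6v1g2, the neuronal form of the G subunit, had the largest rise, at 4.47, 3.49 and 1.18 at T0 and 8.83, 10.5 and 11.1 CPM at T1 (log2 fold change 1.74 ± 0.43, adjusted p = 0.024, and up to 0.086 without T1 replicate 1, 2 or 3). Atp6v1a, the catalytic subunit, went from 193, 199 and 222 to 257, 264 and 259 CPM (log2 fold change 0.34 ± 0.11, adjusted p = 0.046, and up to 0.14 without T0 replicate 1 or 2 or without T1 replicate 1, 2 or 3). Its promoter (GRCm38.p6, chr16:44139374-44139401, minus strand) holds the palindrome TCACGTGA, which contains the E-box CACGTG and is a form of the CLEAR element that the factor TFEB binds, 132 bases before the start. The palindrome is found in 0.785% of all promoters, and the gene is named for this match. Fewer than 80% of V-ATPase and lysosomal genes matched a promoter, so no share is given over them. Among the lysosomal genes that matched, the palindrome lay in 1 of 13 promoters of higher members and in 5 of 34 of members not called.
Atp6v1a: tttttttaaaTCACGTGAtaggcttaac

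Lysosomal genes were higher in 17 of 54 members (10, 10 and 26 without T0 replicates 1, 2 and 3 and 6, 6 and 7 without T1 replicates 1, 2 and 3) and lower in 3 (1 and 6 without T0 replicates 1 and 3 and 0 and 0 without T1 replicates 1 and 2) (5.56% lower and 31.5% higher, against 16.8% and 15.1%, median log2 fold change 0.33, and 0.28 without T0 replicate 3). Smpd1, acid sphingomyelinase, was at 50.9, 49.1 and 34.6 at T0 and 83.2, 83.1 and 85.3 CPM at T1 (log2 fold change 0.9 ± 0.16, adjusted p = 0.0078). Lamp2, a membrane protein of the lysosome, went from 303, 335 and 188 to 507, 498 and 566 CPM (log2 fold change 0.93 ± 0.22, adjusted p = 0.02, and up to 0.071 without T1 replicate 1, 2 or 3). Cathepsins B and L are proteases of this compartment. Ctsb was at 87, 86.2 and 77.7 at T0 and 128, 119 and 138 CPM at T1 (log2 fold change 0.62 ± 0.11, adjusted p = 0.0075). Ctsl went from 83.7, 86.3 and 70.1 to 143, 120 and 127 CPM (log2 fold change 0.7 ± 0.13, adjusted p = 0.0082). Ctsd, at 391, 391 and 243 at T0 and 478, 462 and 515 CPM at T1 (log2 fold change 0.5 ± 0.2, adjusted p = 0.094), was not called. The hydrolase genes Aga, Glb1 and Gusb were the 3 lower members, with log2 fold changes of -0.65, -0.54 and -0.38. All 3 encode soluble enzymes of the lysosome. Aga was no longer called without T1 replicate 1 or 2, with adjusted p up to 0.057. Glb1 was no longer called without T0 replicate 1 or without T1 replicate 1 or 2, with adjusted p up to 0.11. Gusb was no longer called without T0 replicate 1 or 2 or without T1 replicate 1, 2 or 3, with adjusted p up to 0.13.

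Autophagy genes had 11 higher (17 without T0 replicate 3 and 3, 3 and 4 without T1 replicates 1, 2 and 3) and 0 lower (2 without T0 replicate 3) of 43 members (0% lower and 25.6% higher, against 16.8% and 15.1%, median log2 fold change 0.32, and 0.2 without T0 replicate 3). Gabarapl1 and Map1lc3b encode ATG8 proteins, which coat the autophagosome. Gabarapl1 was at 135, 138 and 78.4 at T0 and 285, 264 and 298 CPM at T1 (log2 fold change 1.27 ± 0.22, adjusted p = 0.007). Map1lc3b (LC3B) went from 88.3, 76.6 and 44.5 to 164, 160 and 167 CPM (log2 fold change 1.23 ± 0.24, adjusted p = 0.01). Optn, a cargo receptor, was at 13.4, 15.5 and 7.27 at T0 and 28.9, 26.8 and 30.6 CPM at T1 (log2 fold change 1.25 ± 0.27, adjusted p = 0.015, and up to 0.058 without T1 replicate 1, 2 or 3). T0 replicate 3 was the lowest library for all 3 genes. Of 58 Rab GTPase genes, which direct vesicle traffic, 13 were higher (8 and 25 without T0 replicates 1 and 3 and 8, 6 and 8 without T1 replicates 1, 2 and 3) and 2 lower (1, 1 and 5 without T0 replicates 1, 2 and 3 and 0, 0 and 0 without T1 replicates 1, 2 and 3) (3.45% lower and 22.4% higher, against 16.8% and 15.1%, median log2 fold change 0.28, and 0.26 without T0 replicate 3). Rab44 went from 1.32, 0.957 and 0.485 to 11.6, 12.9 and 8.52 CPM (log2 fold change 3.57 ± 0.37, adjusted p = 0.001). Rab43 was at 11.5, 14 and 9.35 at T0 and 30.5, 29.6 and 28.2 CPM at T1 (log2 fold change 1.34 ± 0.18, adjusted p = 0.0023). The proteasome had 0 higher and 2 lower (4 without T0 replicate 3 and 1, 1 and 1 without T1 replicates 1, 2 and 3) of 36 genes (5.56% lower and 0% higher, against 16.8% and 15.1%). Among the lower ones, Psmc3ip is a recombination gene that shares only the name.

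**Figure D5:**
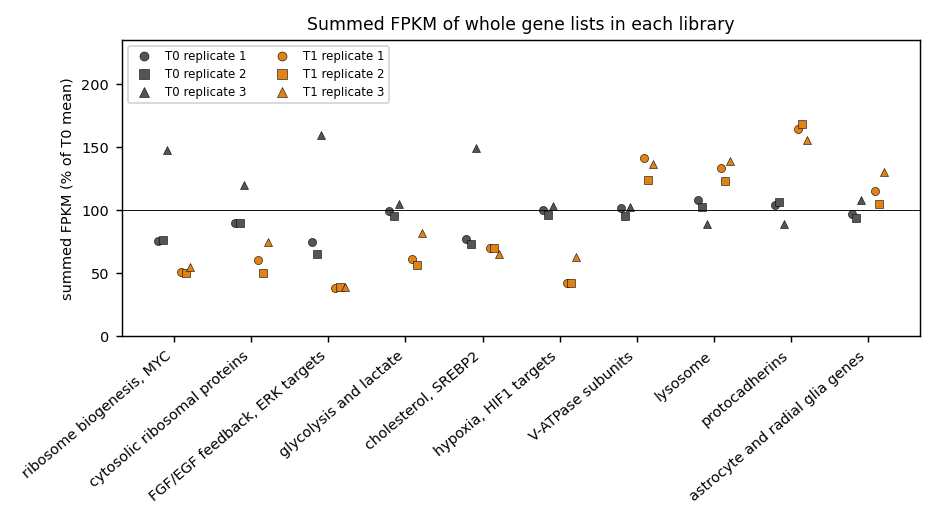
Summed FPKM of all members of 10 gene lists in each library, as a percentage of the mean of the 3 T0 libraries (line at 100), for T0 (grey) and T1 (orange) with circles, squares and triangles for replicates 1, 2 and 3. T0 replicate 3 stands at 148% for ribosome biogenesis, 159.8% for FGF and EGF feedback genes and 149.6% for cholesterol genes, and close to the other T0 libraries for V-ATPase subunits (102.4%).

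The extracellular matrix was read next. Of 36 basement membrane, laminin and collagen genes 10 were lower (18 without T0 replicate 3) and 2 higher (8 without T0 replicate 3) (27.8% lower and 5.56% higher, against 16.8% and 15.1%, median log2 fold change -0.12, and -0.45 without T0 replicate 3). Fbln2, fibulin-2, went from 48.4, 48.7 and 81.2 to 4.46, 2.55 and 5.72 CPM (log2 fold change -3.8 ± 0.36, adjusted p = 0.0007). Fibronectin (Fn1) was at 196, 182 and 137 at T0 and 32.1, 33.2 and 44.2 CPM at T1 (log2 fold change -2.23 ± 0.19, adjusted p = 0.00058). Tenascin-C (Tnc), a matrix protein of the stem cell niche, went from 542, 520 and 642 to 128, 129 and 195 CPM (log2 fold change -1.91 ± 0.2, adjusted p = 0.0011). Lama5, a laminin chain, was at 492, 424 and 466 at T0 and 134, 138 and 150 CPM at T1 (log2 fold change -1.71 ± 0.12, adjusted p = 0.00042). The groups were separate for all 4 genes, and T0 replicate 3 was not apart from the other T0 libraries for Lama5. Of 21 collagen genes 4 were higher (10 without T0 replicate 3) and 1 lower (0 and 5 without T0 replicates 2 and 3 and 0, 0 and 0 without T1 replicates 1, 2 and 3) (4.76% lower and 19% higher, against 16.8% and 15.1%). Col27a1 went from 9.45, 10.9 and 4.92 to 70.2, 73.2 and 65.7 CPM (log2 fold change 3.04 ± 0.29, adjusted p = 0.0007). Col28a1 was at 0.952, 0.615 and 0.485 at T0 and 17, 11.9 and 9.77 CPM at T1 (log2 fold change 4.22 ± 0.36, adjusted p = 0.00054). Col4a1, at 5.42, 3.76 and 17 at T0 and 11.7, 14.2 and 12.9 CPM at T1 (log2 fold change 0.57 ± 0.52 (1.5 without T0 replicate 3), adjusted p = 0.43), was not called.

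Integrins bind this matrix. Itga5, the fibronectin receptor subunit, went from 67.9, 66 and 101 to 19.7, 16.6 and 21.3 CPM (log2 fold change -2.03 ± 0.21, adjusted p = 0.00098). Itga6, a laminin receptor subunit, was at 224, 213 and 228 at T0 and 338, 366 and 355 CPM at T1 (log2 fold change 0.67 ± 0.1, adjusted p = 0.0042). Their shared partner Itgb1 was at 638, 714 and 830 at T0 and 534, 561 and 586 CPM at T1 (log2 fold change -0.38 ± 0.14, adjusted p = 0.075). Over the list of integrins and focal adhesion genes 6 of 37 were lower (10 without T0 replicate 3 and 3 without T1 replicate 1) and 5 higher (10 without T0 replicate 3 and 3 and 3 without T1 replicates 1 and 2) (16.2% lower and 13.5% higher, against 16.8% and 15.1%, median log2 fold change -0.2, and -0.09 without T0 replicate 3).

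Proteoglycans carry sulphated sugar chains. Of 30 members 6 were lower and 8 higher (4, 4 and 5 without T1 replicates 1, 2 and 3) (20% lower and 26.7% higher, against 16.8% and 15.1%, median log2 fold change 0.31, and 0.16 without T0 replicate 3). Cd44, the hyaluronan receptor, went from 128, 130 and 134 to 25.7, 32.2 and 27.3 CPM (log2 fold change -2.2 ± 0.13, adjusted p = 0.00037). Cspg5 (neuroglycan C) was at 122, 117 and 83.9 at T0 and 453, 431 and 520 CPM at T1 (log2 fold change 2.12 ± 0.18, adjusted p = 0.00054). Bcan (brevican), a chondroitin sulphate proteoglycan of the brain, went from 1220, 1110 and 690 to 2670, 2380 and 2380 CPM (log2 fold change 1.3 ± 0.23, adjusted p = 0.007). The heparan sulphate carriers parted. Gpc6 was at 11.9, 14.9 and 13.6 at T0 and 2.19, 2.92 and 1.55 CPM at T1 (log2 fold change -2.61 ± 0.27, adjusted p = 0.001). Gpc1 went from 118, 118 and 134 to 229, 247 and 311 CPM (log2 fold change 1.09 ± 0.15, adjusted p = 0.0026).

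Proteases that trim the matrix showed 5 lower (10 without T0 replicate 3) and 9 higher (14 without T0 replicate 3 and 5 and 4 without T1 replicates 1 and 2) of 30 members (16.7% lower and 30% higher, against 16.8% and 15.1%, median log2 fold change 0.31, and 0.17 without T0 replicate 3). Mmp24, a membrane-bound metalloproteinase of neural tissue, was at 0.366, 0.615 and 0.0693 at T0 and 7.82, 8.75 and 8.82 CPM at T1 (log2 fold change 4.56 ± 0.49, adjusted p = 0.0011). The inhibitor Timp2 went from 96.9, 99.3 and 86.3 to 233, 256 and 241 CPM (log2 fold change 1.37 ± 0.11, adjusted p = 0.00051). Adamts14, which processes procollagen, was at 15.5, 13 and 21.6 at T0 and 2.36, 1.82 and 0.775 CPM at T1 (log2 fold change -3.36 ± 0.41, adjusted p = 0.0018). Adamts12 went from 38, 36.2 and 37 to 160, 172 and 155 CPM (log2 fold change 2.13 ± 0.1, adjusted p = 0.00037). Actin genes had 8 lower (3, 3 and 3 without T1 replicates 1, 2 and 3) and 10 higher (3, 3 and 16 without T0 replicates 1, 2 and 3 and 3, 3 and 2 without T1 replicates 1, 2 and 3) of 43 (18.6% lower and 23.3% higher, against 16.8% and 15.1%, median log2 fold change 0.05, and 0.19 without T0 replicate 3). Pfn2, the neuronal profilin that delivers actin monomers, was at 147, 148 and 124 at T0 and 652, 589 and 744 CPM at T1 (log2 fold change 2.24 ± 0.15, adjusted p = 0.0004). Msn, moesin, which ties actin to the membrane, went from 683, 685 and 818 to 266, 271 and 298 CPM (log2 fold change -1.39 ± 0.13, adjusted p = 0.0007).

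Notch signalling keeps progenitors from differentiating, with the ligand on one cell and the receptor on its neighbour. Of 30 genes 3 were lower (6 without T0 replicate 3 and 0 and 0 without T1 replicates 1 and 2) and 8 higher (5 and 5 without T1 replicates 1 and 3) (10% lower and 26.7% higher, against 16.8% and 15.1%, median log2 fold change 0.34, and 0.24 without T0 replicate 3). The ligand Dll4, on mm9 at chr2:119146922-119161698, was at 3.74, 2.32 and 1.8 at T0 and 65.1, 55.9 and 70 CPM at T1 (log2 fold change 4.6 ± 0.28, adjusted p = 0.0004). Dll1 went from 202, 193 and 127 to 454, 437 and 440 CPM (log2 fold change 1.35 ± 0.19, adjusted p = 0.0029). The groups did not overlap for either ligand. The receptor Notch1 was at 701, 727 and 303 at T0 and 693, 707 and 660 CPM at T1 (log2 fold change 0.25 ± 0.31, adjusted p = 0.56). Hes5 and Hes1 are targets of the receptor. Hes5 was at 58.8, 57.8 and 26.6 at T0 and 11.2, 12.3 and 19.1 CPM at T1 (log2 fold change -1.75 ± 0.35, adjusted p = 0.012, and up to 0.061 without T1 replicate 1 or 2). Hes1 was at 48.1, 44.9 and 41.9 at T0 and 56.6, 54.1 and 64.2 CPM at T1 (log2 fold change 0.38 ± 0.12, adjusted p = 0.054). Lfng, a glycosyltransferase that tunes the receptor, went from 327, 321 and 319 to 219, 165 and 233 CPM (log2 fold change -0.65 ± 0.15, adjusted p = 0.018, and up to 0.065 without T1 replicate 1 or 2).

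BMP and TGF-beta genes had 6 lower (13 without T0 replicate 3) and 7 higher (4, 4 and 15 without T0 replicates 1, 2 and 3 and 4, 3 and 4 without T1 replicates 1, 2 and 3) of 38 (15.8% lower and 18.4% higher, against 16.8% and 15.1%, median log2 fold change 0.15, and 0.1 without T0 replicate 3). Among the ligands Tgfb1 was at 6.01, 5.13 and 9.35 at T0 and 1.43, 1.24 and 2.15 CPM at T1 (log2 fold change -2.07 ± 0.35, adjusted p = 0.0058). Tgfb3 went from 22.3, 21.9 and 23.5 to 9.42, 9.99 and 13.4 CPM (log2 fold change -1.04 ± 0.18, adjusted p = 0.0063). The receptor gene Tgfbr2 was at 14.9, 14.8 and 71.2 at T0 and 6.48, 5.18 and 6.14 CPM at T1 (log2 fold change -2.5 ± 0.66 (-1.32 without T0 replicate 3), adjusted p = 0.028, and up to 0.11 without T1 replicate 1, 2 or 3). T0 replicate 3 held far more Tgfbr2 than the rest. Bmpr1b, a BMP receptor gene, was higher, at 44.1, 41.7 and 22.3 at T0 and 78.4, 94.5 and 93.5 CPM at T1 (log2 fold change 1.3 ± 0.26, adjusted p = 0.011, and up to 0.051 without T1 replicate 2). Bmper, a secreted modulator of BMP, went from 4.18, 5.33 and 8.8 to 36.6, 33.8 and 17 CPM (log2 fold change 2.25 ± 0.39, adjusted p = 0.0064). Of the Id genes, BMP targets that block neuronal bHLH factors, Id3 was at 325, 298 and 236 at T0 and 166, 120 and 156 CPM at T1 (log2 fold change -0.96 ± 0.18, adjusted p = 0.0085). Id1 was at 36, 33.7 and 9.7 at T0 and 12.3, 11.1 and 15.1 CPM at T1 (log2 fold change -1.04 ± 0.46, adjusted p = 0.12). Id2 was at 181, 176 and 66 at T0 and 141, 150 and 149 CPM at T1 (log2 fold change 0.06 ± 0.35, adjusted p = 0.91). Id4 had at most 2 counts in any library.

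Wnt genes had 7 lower (4 and 4 without T1 replicates 1 and 2) and 11 higher (7 without T1 replicate 2) of 40 (17.5% lower and 27.5% higher, against 16.8% and 15.1%, median log2 fold change 0.1, and 0.2 without T0 replicate 3). The receptor gene Fzd4 went from 50.4, 50.4 and 98.1 to 12.9, 15.8 and 12.8 CPM (log2 fold change -2.27 ± 0.3, adjusted p = 0.0022). Porcn, the enzyme that acylates Wnt ligands, was at 18, 13.1 and 7.14 at T0 and 46.8, 44 and 43.3 CPM at T1 (log2 fold change 1.81 ± 0.31, adjusted p = 0.0064). The secreted antagonist Sfrp2 went from 4.69, 3.9 and 8.18 to 1.26, 1.24 and 0.715 CPM (log2 fold change -2.39 ± 0.4, adjusted p = 0.0058). In the Hedgehog pathway 4 genes were lower (2 and 2 without T1 replicates 1 and 2) and 1 higher (2 without T0 replicate 3) of 12 (33.3% lower and 8.33% higher, against 16.8% and 15.1%, median log2 fold change -0.13, and -0.17 without T0 replicate 3). Gli3, its repressor, was at 39.4, 39.4 and 55 at T0 and 19.6, 21.8 and 13.8 CPM at T1 (log2 fold change -1.28 ± 0.22, adjusted p = 0.007). Smo, its signal transducer, went from 159, 165 and 183 to 116, 123 and 118 CPM (log2 fold change -0.51 ± 0.1, adjusted p = 0.012, and up to 0.07 without T1 replicate 1 or 2). The co-receptor gene Cdon was at 26.2, 28.8 and 39.8 at T0 and 87.4, 106 and 79.2 CPM at T1 (log2 fold change 1.52 ± 0.2, adjusted p = 0.0022). Of 23 Hippo genes and YAP targets 9 were lower (5, 5 and 5 without T1 replicates 1, 2 and 3) and 5 higher (3 and 8 without T0 replicates 2 and 3 and 3, 3 and 3 without T1 replicates 1, 2 and 3) (39.1% lower and 21.7% higher, against 16.8% and 15.1%, median log2 fold change -0.4, and -0.39 without T0 replicate 3). The partner of YAP, Tead4, went from 11.1, 12 and 17 to 3.45, 3.72 and 5.96 CPM (log2 fold change -1.6 ± 0.29, adjusted p = 0.0078). The kinase Lats2, which restrains YAP, was at 33.5, 37.3 and 30.2 at T0 and 66.5, 70.5 and 55.4 CPM at T1 (log2 fold change 0.93 ± 0.15, adjusted p = 0.0045). Amotl2, which holds YAP in the cytoplasm, went from 106, 105 and 37.2 to 351, 369 and 290 CPM (log2 fold change 2.03 ± 0.38, adjusted p = 0.0092).

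Protocadherins are cell surface proteins by which neurons recognise each other. Of 48 protocadherin genes tested 24 were higher (8, 8 and 14 without T1 replicates 1, 2 and 3) and 2 lower (1, 0 and 5 without T0 replicates 1, 2 and 3 and 0, 1 and 0 without T1 replicates 1, 2 and 3), 50% against 15.1% of all genes (median log2 fold change 0.94, and 0.71 without T0 replicate 3). The clustered genes share sequence, and their reads may be split or lost in counting. Pcdh11x was at 38.7, 40.3 and 21.4 at T0 and 149, 217 and 128 CPM at T1 (log2 fold change 2.3 ± 0.3, adjusted p = 0.0022). Pcdhb13, of the beta cluster, went from 2.93, 3.42 and 0.831 to 10.3, 10.9 and 4.89 CPM (log2 fold change 1.85 ± 0.53, adjusted p = 0.037, and up to 0.13 without T0 replicate 1 or without T1 replicate 1 or 2). Pcdh15, known from the tip links of hair cells, was under 1 CPM in each T0 library and had the largest rise, at 0.659, 0.137 and 0.0693 at T0 and 12.5, 14.7 and 6.44 CPM at T1 (log2 fold change 5.26 ± 0.66, adjusted p = 0.002). Pcdh7 was 1 of the lower members, at 64.8, 70.5 and 78.5 at T0 and 50.6, 53.2 and 37.7 CPM at T1 (log2 fold change -0.6 ± 0.16, adjusted p = 0.032, and up to 0.085 without T0 replicate 2 or without T1 replicate 1, 2 or 3).

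The leucine-rich repeat adhesion proteins, which organise synapses and neurites, were higher in 9 of 18 genes (4 and 4 without T1 replicates 1 and 2) and lower in 0 (1 without T0 replicate 3) (0% lower and 50% higher, against 16.8% and 15.1%, median log2 fold change 0.99, and 0.83 without T0 replicate 3). Lingo1 was at 66.2, 70.7 and 44.1 at T0 and 223, 211 and 291 CPM at T1 (log2 fold change 2.0 ± 0.22, adjusted p = 0.0012). Lrrn2 went from 21, 23.5 and 20.6 to 66, 65.1 and 72.9 CPM (log2 fold change 1.65 ± 0.12, adjusted p = 0.00049). The abundant Lrrn1 was at 1110, 1120 and 549 at T0 and 2350, 2390 and 2380 CPM at T1 (log2 fold change 1.36 ± 0.27, adjusted p = 0.011). Neurexins and neuroligins, the paired adhesion proteins of the synapse, were higher in 3 of 5 tested genes (1, 1 and 1 without T1 replicates 1, 2 and 3). That is 0% lower and 60% higher, against 16.8% and 15.1% of all genes (median log2 fold change 0.86, and 0.6 without T0 replicate 3). Nrxn2 went from 173, 181 and 110 to 358, 366 and 347 CPM (log2 fold change 1.21 ± 0.2, adjusted p = 0.0054). Nlgn1 was at 22.2, 24.7 and 6.65 at T0 and 68.2, 76.3 and 63 CPM at T1 (log2 fold change 1.95 ± 0.44, adjusted p = 0.016, and up to 0.066 without T1 replicate 1, 2 or 3). T1 libraries lay above T0 libraries in every gene named here.

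Eph receptors and ephrins, which repel growing axons and sort cells, had 8 higher (4 and 5 without T1 replicates 1 and 2) and 2 lower (1 and 1 without T1 replicates 1 and 2) of 17 (11.8% lower and 47.1% higher, against 16.8% and 15.1%, median log2 fold change 0.85, and 0.74 without T0 replicate 3). Ephb1 went from 2.49, 2.8 and 2.91 to 101, 142 and 39.1 CPM (log2 fold change 5.1 ± 0.51, adjusted p = 0.0009). T1 replicate 3 was its lowest T1 library. Ephb2 was at 15.3, 16.8 and 3.74 at T0 and 201, 194 and 133 CPM at T1 (log2 fold change 3.88 ± 0.53, adjusted p = 0.0026). Epha5 went from 55.4, 59.2 and 48.8 to 177, 194 and 143 CPM (log2 fold change 1.65 ± 0.15, adjusted p = 0.00066). The vascular receptor Ephb4 was at 41.8, 38.8 and 43.6 at T0 and 22.5, 24 and 22.7 CPM at T1 (log2 fold change -0.84 ± 0.12, adjusted p = 0.0029). Within 1 receptor family, Ephb1 and Ephb2 were thus higher and Ephb4 lower. Over the wider list of axon guidance genes 21 of 54 were higher and 5 lower (3, 3 and 14 without T0 replicates 1, 2 and 3 and 2 and 2 without T1 replicates 1 and 2) (9.26% lower and 38.9% higher, against 16.8% and 15.1%, median log2 fold change 0.37, and 0.23 without T0 replicate 3). Unc5d, a netrin receptor gene, went from 0.513, 0.615 and 0.485 to 4.12, 4.38 and 5.78 CPM (log2 fold change 3.13 ± 0.29, adjusted p = 0.00069). Plxna1, a semaphorin receptor gene, was at 70.1, 67 and 71.7 at T0 and 155, 166 and 112 CPM at T1 (log2 fold change 1.05 ± 0.16, adjusted p = 0.0042).

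Cyclic AMP and ion channels carry the signals that neurons later receive. Adenylyl cyclases were higher in 4 of 8 tested genes, with 0 lower (1 without T0 replicate 3) (0% lower and 50% higher, against 16.8% and 15.1%, median log2 fold change 0.6, and 0.43 without T0 replicate 3). Adcy5, the main cyclase of striatal neurons, went from 2.86, 3.69 and 1.45 to 26, 31.7 and 24.4 CPM (log2 fold change 3.35 ± 0.33, adjusted p = 0.00083). Adcy2 was at 361, 356 and 321 at T0 and 670, 721 and 991 CPM at T1 (log2 fold change 1.2 ± 0.18, adjusted p = 0.0034). Calcium channel genes had 4 higher (9 without T0 replicate 3) and 1 lower (0 and 0 without T1 replicates 2 and 3) of 13 (7.69% lower and 30.8% higher, against 16.8% and 15.1%, median log2 fold change 0.67, and 0.46 without T0 replicate 3). The T-type channel gene Cacna1g went from 0.806, 0.82 and 0.624 to 8.83, 11.2 and 3.93 CPM (log2 fold change 3.39 ± 0.46, adjusted p = 0.0025). Potassium channels had 8 higher (3 and 3 without T1 replicates 1 and 2) and 6 lower of 39 (15.4% lower and 20.5% higher, against 16.8% and 15.1%, median log2 fold change 0.13, and -0.11 without T0 replicate 3). Kcnd2, which carries the A-type current, was at 32.8, 40.6 and 8.73 at T0 and 139, 188 and 103 CPM at T1 (log2 fold change 2.39 ± 0.53, adjusted p = 0.016, and up to 0.066 without T1 replicate 1 or 2). Kcnc4, of the Shaw family, went from 32.4, 30.5 and 44.2 to 5.89, 4.81 and 2.8 CPM (log2 fold change -3.0 ± 0.3, adjusted p = 0.00093). The sodium channel gene Scn8a was at 19.9, 19.9 and 5.33 at T0 and 83.3, 93.9 and 70.4 CPM at T1 (log2 fold change 2.46 ± 0.46, adjusted p = 0.0087).

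Receptors for transmitters came next. Of 20 glutamate receptor genes 8 were higher and 4 lower (2, 2 and 2 without T1 replicates 1, 2 and 3) (20% lower and 40% higher, against 16.8% and 15.1%, median log2 fold change 0.53, and 0.42 without T0 replicate 3). Grm3, a metabotropic receptor gene, went from 29.5, 31.2 and 15.7 to 245, 297 and 208 CPM (log2 fold change 3.3 ± 0.29, adjusted p = 0.00061). Grm5, another, was at 134, 134 and 142 at T0 and 41.1, 45.8 and 59.3 CPM at T1 (log2 fold change -1.49 ± 0.16, adjusted p = 0.001). The AMPA receptor genes parted likewise. Gria2 went from 35, 30.4 and 21.2 to 215, 259 and 146 CPM (log2 fold change 2.84 ± 0.27, adjusted p = 0.00079). Gria3 was at 21.2, 23.4 and 17 at T0 and 10.3, 12.2 and 9.12 CPM at T1 (log2 fold change -0.96 ± 0.19, adjusted p = 0.011, and up to 0.055 without T1 replicate 1). GABA and glycine genes had 7 higher and 1 lower (0, 0 and 4 without T0 replicates 1, 2 and 3 and 0 and 0 without T1 replicates 2 and 3) of 16 (6.25% lower and 43.8% higher, against 16.8% and 15.1%, median log2 fold change 0.52, and 0.34 without T0 replicate 3). Gad1, which makes GABA, went from 3.96, 2.73 and 1.18 to 34.6, 39.2 and 32.1 CPM (log2 fold change 3.75 ± 0.38, adjusted p = 0.00095). The receptor gene Gabbr2 was at 26.2, 31 and 19.8 at T0 and 160, 193 and 134 CPM at T1 (log2 fold change 2.66 ± 0.21, adjusted p = 0.00051). Shisa9, an auxiliary subunit of AMPA receptors, was not counted at T0 (0, 0 and 0 CPM) and was at 3.79, 6.49 and 3.1 CPM at T1. This is at least 21.1-fold higher against a floor of 3 counts in each T0 library.

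Zinc finger genes named Zfp, many of which encode DNA-binding repressors, were the largest family. Of 319 tested, 49 were higher (31 and 100 without T0 replicates 1 and 3 and 11, 10 and 16 without T1 replicates 1, 2 and 3) and 9 lower (19 without T0 replicate 3 and 5, 5 and 5 without T1 replicates 1, 2 and 3), so 15.4% were higher, close to the 15.1% of all genes, and 2.82% lower, against 16.8% (median log2 fold change 0.27, and 0.17 without T0 replicate 3). Zfp804a went from 0.366, 0.479 and 0.0693 to 9.51, 13.6 and 4.95 CPM (log2 fold change 4.9 ± 0.62, adjusted p = 0.0019). Zfp57, which guards imprinted loci, was at 26.1, 23.2 and 13.4 at T0 and 59.9, 67.4 and 52.7 CPM at T1 (log2 fold change 1.52 ± 0.25, adjusted p = 0.0058). Of 14 Kruppel-like factors 4 were lower and 3 higher (1, 1 and 1 without T1 replicates 1, 2 and 3) (28.6% lower and 21.4% higher, against 16.8% and 15.1%). Klf3 went from 67.1, 65.2 and 89.8 to 31.5, 34 and 28.4 CPM (log2 fold change -1.24 ± 0.16, adjusted p = 0.0023). Klf12 was at 152, 145 and 110 at T0 and 287, 326 and 228 CPM at T1 (log2 fold change 1.04 ± 0.18, adjusted p = 0.0072).

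Lineage factors were read one by one. The proneural gene Neurog2 went from 0.44, 0.273 and 0 to 16.7, 14.9 and 7.51 CPM (log2 fold change 5.74 ± 0.68 (5.15 without T0 replicate 3), adjusted p = 0.0016). Olig2 was at 1010, 924 and 1330 at T0 and 1140, 1260 and 1200 CPM at T1 (log2 fold change 0.14 ± 0.17, adjusted p = 0.53). Sox2 was at 420, 422 and 183 at T0 and 438, 427 and 397 CPM at T1 (log2 fold change 0.3 ± 0.3, adjusted p = 0.47). Sox4, a SOX factor of young neurons, was at 643, 647 and 228 at T0 and 1340, 1340 and 1260 CPM at T1 (log2 fold change 1.37 ± 0.37, adjusted p = 0.031, and up to 0.098 without T1 replicate 1, 2 or 3). Its close relative Sox11 was at 195, 216 and 239 at T0 and 167, 208 and 144 CPM at T1 (log2 fold change -0.32 ± 0.16, adjusted p = 0.17). Sox9, of glial progenitors, went from 212, 221 and 77.5 to 356, 427 and 377 CPM (log2 fold change 1.18 ± 0.37, adjusted p = 0.047, and up to 0.14 without T0 replicate 1 or 2 or without T1 replicate 1, 2 or 3). For Sox2, Sox4 and Sox9 T0 replicate 3 was the lowest library. Irx1, an Iroquois homeobox gene, was at 6.3, 6.7 and 1.59 at T0 and 56.2, 54.9 and 29.3 CPM at T1 (log2 fold change 3.26 ± 0.52, adjusted p = 0.0049). Hmga2, a chromatin protein of fetal stem cells, went from 63.7, 61.8 and 69.6 to 25, 23.4 and 19.4 CPM (log2 fold change -1.52 ± 0.14, adjusted p = 0.00067).

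Chromatin genes included members tied to replication. Dnmt1, which copies DNA methylation after replication, was at 418, 433 and 569 at T0 and 146, 141 and 109 CPM at T1 (log2 fold change -1.84 ± 0.18, adjusted p = 0.00088). Its partner Uhrf1 went from 156, 151 and 261 to 20.4, 17.1 and 13.5 CPM (log2 fold change -3.48 ± 0.28, adjusted p = 0.00051). Over the list of DNA methylation and Polycomb genes 10 of 43 were lower (5, 4 and 4 without T1 replicates 1, 2 and 3) and 4 higher (14 without T0 replicate 3 and 0, 0 and 1 without T1 replicates 1, 2 and 3) (23.3% lower and 9.3% higher, against 16.8% and 15.1%, median log2 fold change -0.04, and 0.02 without T0 replicate 3). Jarid2, a cofactor of Polycomb, was higher, at 163, 168 and 98.4 at T0 and 262, 289 and 268 CPM at T1 (log2 fold change 0.93 ± 0.21, adjusted p = 0.017, and up to 0.07 without T1 replicate 1, 2 or 3). Of 26 BAF remodelling subunits 7 were higher (2, 2 and 3 without T1 replicates 1, 2 and 3) and 1 lower (3 without T0 replicate 3 and 0, 0 and 0 without T1 replicates 1, 2 and 3) (3.85% lower and 26.9% higher, against 16.8% and 15.1%). Bcl11b, a subunit and a factor of striatal neurons, was at 4.54, 4.85 and 3.67 at T0 and 16.7, 22.9 and 15.2 CPM at T1 (log2 fold change 2.07 ± 0.23, adjusted p = 0.0012). The ATPase Smarca2 went from 69.3, 80.2 and 31.5 to 162, 174 and 126 CPM (log2 fold change 1.35 ± 0.33, adjusted p = 0.023, and up to 0.088 without T1 replicate 1, 2 or 3). Actl6a, the progenitor subunit, was at 92.7, 90.2 and 167 at T0 and 64.5, 64.4 and 70 CPM at T1 (log2 fold change -0.81 ± 0.25, adjusted p = 0.044, and up to 0.14 without T1 replicate 1, 2 or 3).

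Genes of RNA processing were read as well. Of 20 hnRNP genes 6 were lower (10 without T0 replicate 3 and 1, 3 and 3 without T1 replicates 1, 2 and 3) and 0 higher (30% lower and 0% higher, against 16.8% and 15.1%, median log2 fold change -0.44, and -0.19 without T0 replicate 3), and of 24 cleavage and polyadenylation factors 5 were lower (2 and 9 without T0 replicates 2 and 3 and 0, 0 and 1 without T1 replicates 1, 2 and 3) and 1 higher (4 without T0 replicate 3 and 0 and 0 without T1 replicates 1 and 2) (20.8% lower and 4.17% higher, against 16.8% and 15.1%, median log2 fold change -0.35, and -0.18 without T0 replicate 3). Cpsf3, the endonuclease that cuts the transcript before the poly(A) tail is added, went from 134, 130 and 159 to 100, 97.6 and 98.6 CPM (log2 fold change -0.51 ± 0.11, adjusted p = 0.016, and up to 0.072 without T1 replicate 1, 2 or 3). Papolg, a poly(A) polymerase, was at 38.8, 39.9 and 29.9 at T0 and 59.4, 61.7 and 51.2 CPM at T1 (log2 fold change 0.67 ± 0.15, adjusted p = 0.018, and up to 0.079 without T1 replicate 1 or 2). Ptbp1, the splicing repressor of progenitors, went from 151, 134 and 293 to 90.4, 98.6 and 94.9 CPM (log2 fold change -1.03 ± 0.29, adjusted p = 0.035, and up to 0.12 without T1 replicate 1, 2 or 3). The neuronal splicing factor gene Nova1 was at 373, 356 and 178 at T0 and 603, 705 and 621 CPM at T1 (log2 fold change 1.09 ± 0.28, adjusted p = 0.025, and up to 0.093 without T1 replicate 1, 2 or 3).

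Interferon response and antigen presentation genes had 5 lower (3 and 11 without T0 replicates 1 and 3 and 3 and 2 without T1 replicates 2 and 3) and 2 higher (1, 1 and 7 without T0 replicates 1, 2 and 3 and 1 and 1 without T1 replicates 1 and 3) of 26 (19.2% lower and 7.69% higher, against 16.8% and 15.1%, median log2 fold change 0.05, and -0.19 without T0 replicate 3). Ifit2, an antiviral protein, went from 36.6, 39.6 and 29.9 to 16.4, 11.9 and 12 CPM (log2 fold change -1.4 ± 0.19, adjusted p = 0.0026). B2m, the light chain of MHC class I, was at 102, 104 and 106 at T0 and 142, 118 and 146 CPM at T1 (log2 fold change 0.38 ± 0.12, adjusted p = 0.045, and up to 0.16 without T0 replicate 1 or 2 or without T1 replicate 1 or 3). Of 18 NF-kB targets and cytokines 3 were lower (1, 1 and 1 without T1 replicates 1, 2 and 3) and 4 higher (1 without T0 replicate 2 and 0, 0 and 0 without T1 replicates 1, 2 and 3) (16.7% lower and 22.2% higher, against 16.8% and 15.1%). The chemokine gene Cx3cl1 went from 166, 154 and 66.7 to 245, 334 and 377 CPM (log2 fold change 1.3 ± 0.35, adjusted p = 0.029, and up to 0.099 without T1 replicate 1, 2 or 3). Ccl2, a chemokine that attracts monocytes, was at 1.39, 1.09 and 15 CPM at T0 and 0.168, 0.219 and 0.179 CPM at T1, and it was called lower. T0 replicate 3 held most of its reads, and no T1 library held over 3 counts, so no fold is given. Ccl2 was no longer called without T1 replicate 1, 2 or 3, with adjusted p up to 0.11.

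The JAK-STAT pathway, which turns progenitors towards astrocytes, had 1 lower (3 without T0 replicate 3 and 0 without T1 replicate 1) and 6 higher (1, 1 and 2 without T1 replicates 1, 2 and 3) of 25 genes (4% lower and 24% higher, against 16.8% and 15.1%, median log2 fold change 0.19, and 0.09 without T0 replicate 3). Its receptor subunits parted. Lifr was at 216, 223 and 131 at T0 and 78.2, 96.9 and 84.5 CPM at T1 (log2 fold change -1.13 ± 0.22, adjusted p = 0.0095, and up to 0.052 without T1 replicate 1). Il6st (gp130) went from 95.2, 92.5 and 58.3 to 149, 149 and 118 CPM (log2 fold change 0.76 ± 0.21, adjusted p = 0.033, and up to 0.12 without T1 replicate 1, 2 or 3). Stat3 was at 602, 575 and 402 at T0 and 525, 546 and 705 CPM at T1 (log2 fold change 0.17 ± 0.2, adjusted p = 0.53). Gfap, the intermediate filament of astrocytes, was at 143, 147 and 0.485 at T0 and 36.4, 46.9 and 67.2 CPM at T1 (log2 fold change -0.95 ± 1.22, adjusted p = 0.57). It was not called, and T0 replicate 3 held almost none of it. Of 32 astrocyte and radial glia genes 5 were lower (12 without T0 replicate 3 and 3 and 3 without T1 replicates 1 and 2) and 7 higher (4 and 4 without T1 replicates 1 and 2) (15.6% lower and 21.9% higher, against 16.8% and 15.1%, median log2 fold change 0.13, and -0.17 without T0 replicate 3), and of 19 oligodendrocyte lineage genes 4 were higher (12 without T0 replicate 3 and 1, 1 and 2 without T1 replicates 1, 2 and 3) and 0 lower (4 without T0 replicate 3) (0% lower and 21.1% higher, against 16.8% and 15.1%, median log2 fold change 0.63, and 0.39 without T0 replicate 3).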

How the data were processed

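The authors sequenced TruSeq RNA libraries on a HiScanSQ, and the submitters' processing notes name CASAVA 1.8, TopHat2 2.0.6, Bowtie 0.12.7.0, HTSeq 0.6.0, DESeq2 1.0.0 and the genome build mm9. They deposited raw read counts per gene for each library and, for the series, a table of FPKM values with gene positions, which are printed as that table gives them. The strand setting and the tool behind the FPKM values are not given in the sources used here. Each count file ends in 5 summary entries, which entered neither library sizes nor tests. In these 6 libraries 13.3% to 20.8% of uniquely aligned reads lay outside genes and 0.712% to 0.903% were ambiguous. Alignments to several places were 34% to 39% of all entries at T0 and 27.5% to 33.3% at T1. The bearing of this difference between the groups on the calls was not tested. Paralogs and pseudogenes lose reads to alignments to several places, so ribosomal protein, tubulin and other multigene families are uncertain.

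In R 4.3.3, edgeR 4.0.16 (TMM, filterByExpr, quasi-likelihood F test) was fitted to the 6 libraries. P-values were adjusted by Benjamini-Hochberg over the 12364 genes tested and called under 0.05. Standard errors were derived from the log2 fold change and its F statistic. CPM are counts scaled to one common library total. The floor for a group was 3 counts in each of its libraries, which covers counting error only. On simulated counts for 12240 genes edgeR recovered 58% of 100 genes changed by a log2 fold change of 1 and 98% of 100 changed by 2, and 7.14% of its calls were false. The changed genes were drawn from well-counted genes only, and they were a far smaller share than was called in the real libraries. No simulated library was made to stand apart as T0 replicate 3 does, so these rates need not hold for the real data. The labels call the libraries of a group biological replicates. Those with the same number at T0 and T1 were not paired, since their deviations from the group means correlated at -0.02, 0.14 and 0.08. Between libraries of different numbers the correlations were -0.13 to 0.11, and the labels neither state nor exclude a shared culture line.

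The 68 lists and 74 families, and the comparison itself, were chosen with earlier results of these data known, so their counts are descriptions and no test of a list was run. Genes named are, first, the 12 largest rises and falls among called genes whose mean CPM had a log2 of at least 3. These also had to be called without T0 replicate 3 and to have groups that did not overlap. Added to them are the 10 largest rises and falls in FPKM among called genes. On each list the 3 largest rises and falls past the threshold are named, where the mean CPM had a log2 of at least 1. A short set of pathway and marker genes is named whatever their values. Another 4 genes are named for a promoter match (Atp6v1a, G6pdx, Nfe2l2 and Sod1), chosen after their values were seen. A further 6 genes that the rule names are not reported here, whatever their values. Promoters, 250 bases before RefSeq gene starts on GRCm38.p6, were matched by symbol. Motif shares over a whole list are given only where at least 80% of it matched. For the HIF1 and lysosomal lists, which fell short of that, only counts split by call are given. Alternatives were other normalizations and filters, a replicate block, DESeq2 1.42.0, limma 3.58.1 on FPKM, all 12 libraries and leaving out each library in turn.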

Additional observations from a re-analysis of the deposited data

How the results depend on the processing

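Counts of called genes depended mostly on which libraries entered. With each library left out in turn, 940 to 3128 genes were lower and 810 to 3162 higher, the lowest counts without T1 replicate 2 (940 and 810) and the highest without T0 replicate 3, and in the libraries numbered 1 and 2 alone 3729 were lower and 3733 higher. Other settings stayed within 1.5 times of 2078 and 1871: 2075 and 1865 with RLE normalization, 2037 and 1822 with no filter on low counts, 2040 and 1796 with a mean CPM of at least 1, 2750 and 2751 with all 12 libraries in the fit, 2487 and 2322 with DESeq2, and 1388 and 1273 with limma on log2(FPKM + 1). Whether same-numbered T0 and T1 libraries share a culture line is not stated. With the replicate block the counts were 1724 and 1648, with 73 calls of named genes lost and 1 gained. Of the named genes that were called, 1 changed direction in any of these settings: Cish, with a log2 fold change of -0.14 by limma on log2(FPKM + 1). Limma, with a pseudocount of 1 that shrinks low genes, also ended the call for 125 named genes. Depth limits what can be said of genes at a few counts, and 5424 genes with 0 counts in all 6 libraries have an FPKM entry, 31 of them with a mean FPKM of at least 10, so a 0 count there is not a sign of absence.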

Other observations

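Several families outside the account above had called members. HMG proteins, which bend DNA in chromatin, were lower in 6 of 10 genes and higher in 0 (60% lower and 0% higher, against 16.8% and 15.1%, median log2 fold change -0.81, and -0.78 without T0 replicate 3). Hmgb2 was at 21.2, 20.6 and 31.4 at T0 and 3.53, 1.6 and 2.98 CPM at T1 (log2 fold change -3.17 ± 0.33, adjusted p = 0.001). Linker and variant histones had 5 lower and 2 higher (1 and 4 without T0 replicates 1 and 3 and 1, 1 and 1 without T1 replicates 1, 2 and 3) of 12 (41.7% lower and 16.7% higher, against 16.8% and 15.1%). H2afx, the variant phosphorylated at DNA breaks, went from 89.7, 89.9 and 168 to 32.4, 27.6 and 26.9 CPM (log2 fold change -2.0 ± 0.27, adjusted p = 0.0025). The replication-independent H3f3a was at 36.6, 42.1 and 40 at T0 and 55.7, 59.9 and 64.5 CPM at T1 (log2 fold change 0.6 ± 0.12, adjusted p = 0.011). Host genes of small nucleolar RNAs were lower in 4 of 10 (2 and 2 without T1 replicates 1 and 2) (40% lower and 0% higher, against 16.8% and 15.1%). Snhg4 went from 40.3, 42.5 and 42.1 to 13.3, 15.5 and 15 CPM (log2 fold change -1.51 ± 0.13, adjusted p = 0.00054). Tubulins, whose reads are partly lost to paralogs, had 10 lower (6, 4 and 6 without T1 replicates 1, 2 and 3) and 3 higher (1, 1 and 5 without T0 replicates 1, 2 and 3 and 1, 1 and 1 without T1 replicates 1, 2 and 3) of 18 (55.6% lower and 16.7% higher, against 16.8% and 15.1%). The neuronal Tubb3 was at 31.6, 33 and 10.5 at T0 and 146, 148 and 161 CPM at T1 (log2 fold change 2.6 ± 0.4, adjusted p = 0.0042). Tubb6 went from 97.2, 101 and 204 to 22.3, 17.4 and 16 CPM (log2 fold change -2.85 ± 0.33, adjusted p = 0.0014). Carbonic anhydrases, which hydrate carbon dioxide, were lower in 3 of 6 tested genes (5 without T0 replicate 3) and higher in 0 (50% lower and 0% higher, against 16.8% and 15.1%, median log2 fold change -0.82, and -1.32 without T0 replicate 3). Car2 was at 65.6, 66.1 and 58.2 at T0 and 28, 23.4 and 27.5 CPM at T1 (log2 fold change -1.27 ± 0.13, adjusted p = 0.00095). Zinc transporters had 4 higher and 0 lower (1 without T0 replicate 3) of 18 (0% lower and 22.2% higher, against 16.8% and 15.1%). Slc39a12 went from 0.586, 0.752 and 0.277 to 5.72, 5.84 and 6.02 CPM (log2 fold change 3.42 ± 0.35, adjusted p = 0.00095).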
